A study of Mus musculus with 24 samples.

Results

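Transcripts of 52 genes of transforming growth factor beta (TGF-beta), bone morphogenetic protein (BMP) and activin signalling were followed in cultured mouse fat cells. The genes were taken as a named list from the 53465 gene entries of the count table, and all 52 had an entry. The list was chosen with earlier results of these data known. They comprised 5 TGF-beta and activin ligand genes, 11 genes of BMPs and growth differentiation factors (GDFs), 8 of secreted inhibitors and binding proteins, 4 of latent TGF-beta binding proteins, 12 of receptors, 6 of signalling Smads, 2 of inhibitory Smads and 4 Id genes. Of these, 46 passed the filter on low counts and were tested. The other 6, Bmp2, Bmp3, Bmp4, Bmp5, Bmp7 and Gdf5, did not, and none of them had more than 13 counts in any library.

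Ligands of the family bind pairs of type I and type II receptors, which phosphorylate Smad proteins that then enter the nucleus together with Smad4. TGF-betas and activins act through Smad2 and Smad3, and are known to hold back the differentiation of fat cell precursors. BMPs act through Smad1, Smad5 and Smad9, induce the Id genes as direct targets, and are known for committing precursors to the fat lineage and for supporting thermogenic fat. Follistatins, gremlin, noggin and chordins bind ligands outside the cell, and Smad6 and Smad7 block the signal inside it.

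Cells of the stromal vascular fraction, the mixed precursor and stromal cells of fat, were taken from epididymal (eWAT) or inguinal (iWAT) white fat and differentiated in culture. They were induced for 2 days with dexamethasone, 0.5 mmol/l isobutylmethylxanthine and 0.1 mg/ml insulin, followed by 5 days in medium with 10% serum and insulin at 1 µg/ml. Control (Cont) cells came from Senp2flox/flox mice. Senp2-aKO (aKO) cells came from Senp2flox/flox mice that also carry Adipoq Cre. All 8 groups thus carry the floxed allele, and Senp2 encodes a protease that removes SUMO from proteins. The Adipoq promoter is active in fat cells, so cells that had not differentiated in the dish would keep Senp2. Cells of each depot and genotype received siRNA against C/EBPβ (siCEBPb) or siNS, a name that the labels do not explain. Each of the 8 groups had 3 libraries. The labels do not say whether these were separate animals or cultures, so the p-values speak only of the spread among these libraries, which may be technical.

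Replicate 2 of iWAT aKO siNS held 603585 gene counts, with 93.3% of its listed reads not aligned, and is called the shallow library. The remaining 23 held between 8435494 and 15388744. Counts of members called are also given without the shallow library where they differ. The targeted Cebpb fell with siCEBPb by 1.73 (Cont) and 2.47 (aKO) on the log2 scale in eWAT, and by 1.79 and 2.69 in iWAT. Its difference between genotypes was -0.15 ± 0.15 in eWAT and -0.072 ± 0.16 in iWAT with siNS, but with siCEBPb aKO lay lower, by 0.88 and 0.97 (edgeR QL adjusted p = 0.00134 and 0.00155). The knockdown thus left less Cebpb RNA in aKO than in Cont cells. The interaction of genotype and siRNA for Cebpb was -0.74 ± 0.22 in eWAT and -0.90 ± 0.25 in iWAT. It did not pass the threshold (edgeR QL adjusted p = 0.0562 and 0.0522). Senp2 itself differed by -0.20 ± 0.072 in eWAT and -0.062 ± 0.082 in iWAT with siNS (edgeR QL adjusted p = 0.0519 and 0.688). In a fit without the shallow library these were -0.19 and -0.083 (edgeR QL adjusted p = 0.0322 and 0.534), so eWAT then came under 0.05. The eWAT interaction of genotype and siRNA for Senp2 was 0.29 in either fit. Its edgeR QL adjusted p was 0.0855 with all libraries and 0.0484 without the shallow one. Reads from the rest of the gene and from cells that lack Cre are counted too, so this level checks nothing about the deletion. The fat cell marker Adipoq was at 69.7 ± 11.1 CPM in the 3 eWAT Cont siNS libraries (mean ± SD, n = 3), where CPM is a count scaled to its library's size. Wt1, known as a gene of visceral fat, was at 15.1 ± 0.825 CPM in eWAT and 14.4 ± 0.238 in iWAT Cont siNS, so it did not separate the depot labels. It did separate the genotypes. In aKO siNS it was at 1.601 ± 0.168 CPM in eWAT and 1.628 ± 0.303 in iWAT, or 1.454 in iWAT without the shallow library. With siCEBPb its means were 15.47 (Cont) and 1.447 (aKO) in eWAT, and 14.64 and 1.631 in iWAT.

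Promoter sequence is shown for 3 of the Id genes and Smad6, which rose together in aKO cells, and for Inhba, which fell. The 250 bases before the annotated start are printed 5′ to 3′ on the strand of the gene, from RefSeq on GRCm38.p6. They lie at chr12:25096093-25096342 (minus strand) for Id2, chr4:136143572-136143821 (plus) for Id3, chr13:48260866-48261115 (plus) for Id4, chr9:64022060-64022309 (minus) for Smad6 and chr13:16011601-16011850 (plus) for Inhba. No entry was found for Id1. Capitals mark 3 motifs searched on both strands.
Id2: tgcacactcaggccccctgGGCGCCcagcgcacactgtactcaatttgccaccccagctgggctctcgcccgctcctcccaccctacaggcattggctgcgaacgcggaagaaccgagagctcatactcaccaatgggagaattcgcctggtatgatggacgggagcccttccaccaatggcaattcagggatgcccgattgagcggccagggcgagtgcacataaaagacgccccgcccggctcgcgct
Id3: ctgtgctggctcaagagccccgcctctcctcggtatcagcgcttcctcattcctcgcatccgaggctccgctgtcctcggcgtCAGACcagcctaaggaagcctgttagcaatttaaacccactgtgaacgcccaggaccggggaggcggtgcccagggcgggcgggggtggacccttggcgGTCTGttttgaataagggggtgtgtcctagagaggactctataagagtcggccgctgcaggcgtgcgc
Id4: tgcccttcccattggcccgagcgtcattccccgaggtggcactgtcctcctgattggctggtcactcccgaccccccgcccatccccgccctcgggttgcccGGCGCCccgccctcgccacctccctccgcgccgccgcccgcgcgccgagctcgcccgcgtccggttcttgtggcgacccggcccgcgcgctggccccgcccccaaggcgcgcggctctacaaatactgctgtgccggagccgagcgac
Smad6: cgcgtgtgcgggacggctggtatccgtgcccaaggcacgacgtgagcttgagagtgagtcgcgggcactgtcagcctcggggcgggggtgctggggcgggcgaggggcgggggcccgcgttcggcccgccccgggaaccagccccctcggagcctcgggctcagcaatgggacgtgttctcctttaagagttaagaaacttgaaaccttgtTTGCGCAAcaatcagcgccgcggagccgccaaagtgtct
Inhba: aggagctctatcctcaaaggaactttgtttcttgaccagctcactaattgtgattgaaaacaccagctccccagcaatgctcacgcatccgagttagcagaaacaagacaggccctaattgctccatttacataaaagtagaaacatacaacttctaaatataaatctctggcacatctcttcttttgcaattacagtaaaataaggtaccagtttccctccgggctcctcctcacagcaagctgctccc

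The motifs were GGCGCC, the GC-rich element bound by Smads of the BMP branch, GTCTG, a Smad box half-site (CAGAC on the other strand), and TTGCGCAA, a C/EBP palindrome. They were chosen with the sequences in view, and no overlap between them was found in the printed sequences. Id2 held GGCGCC 231 bases and Id4 148 bases before the start. Id3 held the half-site 167 and 68 bases before it, and Smad6 held the C/EBP palindrome 39 bases before it. Inhba held none of the 3. Among the 44 promoter entries of the 36 members that had one, 11 held GGCGCC, 19 the half-site and 1 the palindrome. Of 32851 mouse promoter entries of the same length, 9.59% held GGCGCC, 42.2% the half-site and 0.164% the palindrome. A match is a description of the letters, and says nothing on binding.

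The first question was which members differed between Senp2-aKO and control cells with siNS. In aKO cells of both depots Id1, Id2, Id3 and Id4, the inhibitory Smad6 and the ligand genes Gdf10, Tgfb2 and Tgfb3 were higher. So were the secreted inhibitors Fst and Chrdl1 and the co-receptor gene Tgfbr3. The activin subunit genes Inhba and Inhbb, the ligand genes Tgfb1 and Gdf6 and the receptor genes Tgfbr1 and Bmpr1b were lower. So were Smad3 and the secreted binding protein genes Fstl3, Grem1 and Bmper. In eWAT 11 of 46 tested members rose and 11 fell, beside 9.50% and 10.9% of all 14785 tested genes. In iWAT 12 rose and 10 fell, beside 7.32% and 7.85%. The median difference of the members was -0.064 in eWAT and 0.056 in iWAT, beside medians of 0.0036 and -8.7e-04 over all tested genes. Without the shallow library 12 rose and 14 fell in eWAT, beside 1901 and 1956 of the 14973 genes then tested. In iWAT 12 rose and 11 fell in that fit, beside 1341 and 1411. With only the compared groups in the fit 6 rose and 6 fell in iWAT, beside 320 and 398 of 13481 genes tested there. Libraries of aKO and Cont stood fully apart for 29 of 46 members in eWAT, beside 39.3% of all genes, and for 17 in iWAT, beside 25.8%.

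The calls of the depots overlapped closely. The same 11 members rose in both, which is all 11 of the eWAT rises and 11 of the 12 iWAT rises. The same 10 fell in both, of 11 in eWAT and 10 in iWAT, and 0 moved in opposite directions. Among all genes, 836 rose in both depots, 59.5% of the eWAT rises and 77.3% of the iWAT rises, and 957 fell in both, 59.5% and 82.4%. The depot comparisons share no library, but same-numbered eWAT and iWAT libraries deviated together, with a mean r of 0.336 across genes over 11 pairs, so the depots are not independent of each other.

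With siCEBPb fewer members were called between the genotypes than with siNS. In eWAT 5 rose and 4 fell, beside 3.90% and 6.87% of all genes, and in iWAT 3 rose and 3 fell, beside 3.52% and 6.51%. Tgfb3, Inhba and Fst were higher in aKO of both depots, and Gdf6 and Bmper were lower. The eWAT count of 9 went to 4 without Cont replicate 1 or aKO replicate 1 and to 5 without Cont replicate 3. Over all genes 366, 390 and 406 rose in these fits, of 15036, 15039 and 15027 tested, and 772, 707 and 787 fell. Without the shallow library the rises and falls numbered 5 and 6 in eWAT, beside 882 and 1279 of 14973 genes tested. In iWAT they numbered 3 and 6, beside 778 and 1194.

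For the knockdown itself, 19 members were called in Cont cells of each depot, and 31 (eWAT) and 30 (iWAT) in aKO cells. In eWAT Cont 9 members rose with siCEBPb and 10 fell, beside 11.8% and 14.9% of all genes. In iWAT Cont 12 rose and 7 fell, beside 10.3% and 14.0%. In eWAT aKO 16 rose and 15 fell, beside 16.6% and 19.1%, and in iWAT aKO 15 rose and 15 fell, beside 13.6% and 17.7%. The knockdown effects of Cont and aKO cells differed, by the interaction of genotype and siRNA, for 11 members in eWAT and 7 in iWAT, beside 6.34% and 3.51% of all genes. Without the shallow library 14973 genes were tested. The knockdown rises and falls then numbered 10 and 10 in eWAT Cont, beside 2053 and 2700 of all genes. In iWAT Cont they were 11 and 8, beside 1858 and 2502. They were 18 and 16 in eWAT aKO, beside 2716 and 3383, and 15 and 15 in iWAT aKO, beside 2224 and 2975. The interaction count was 14 in eWAT, beside 764 positive and 913 negative calls over all genes. In iWAT it was 12, beside 377 and 562.

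**Figure D1:**
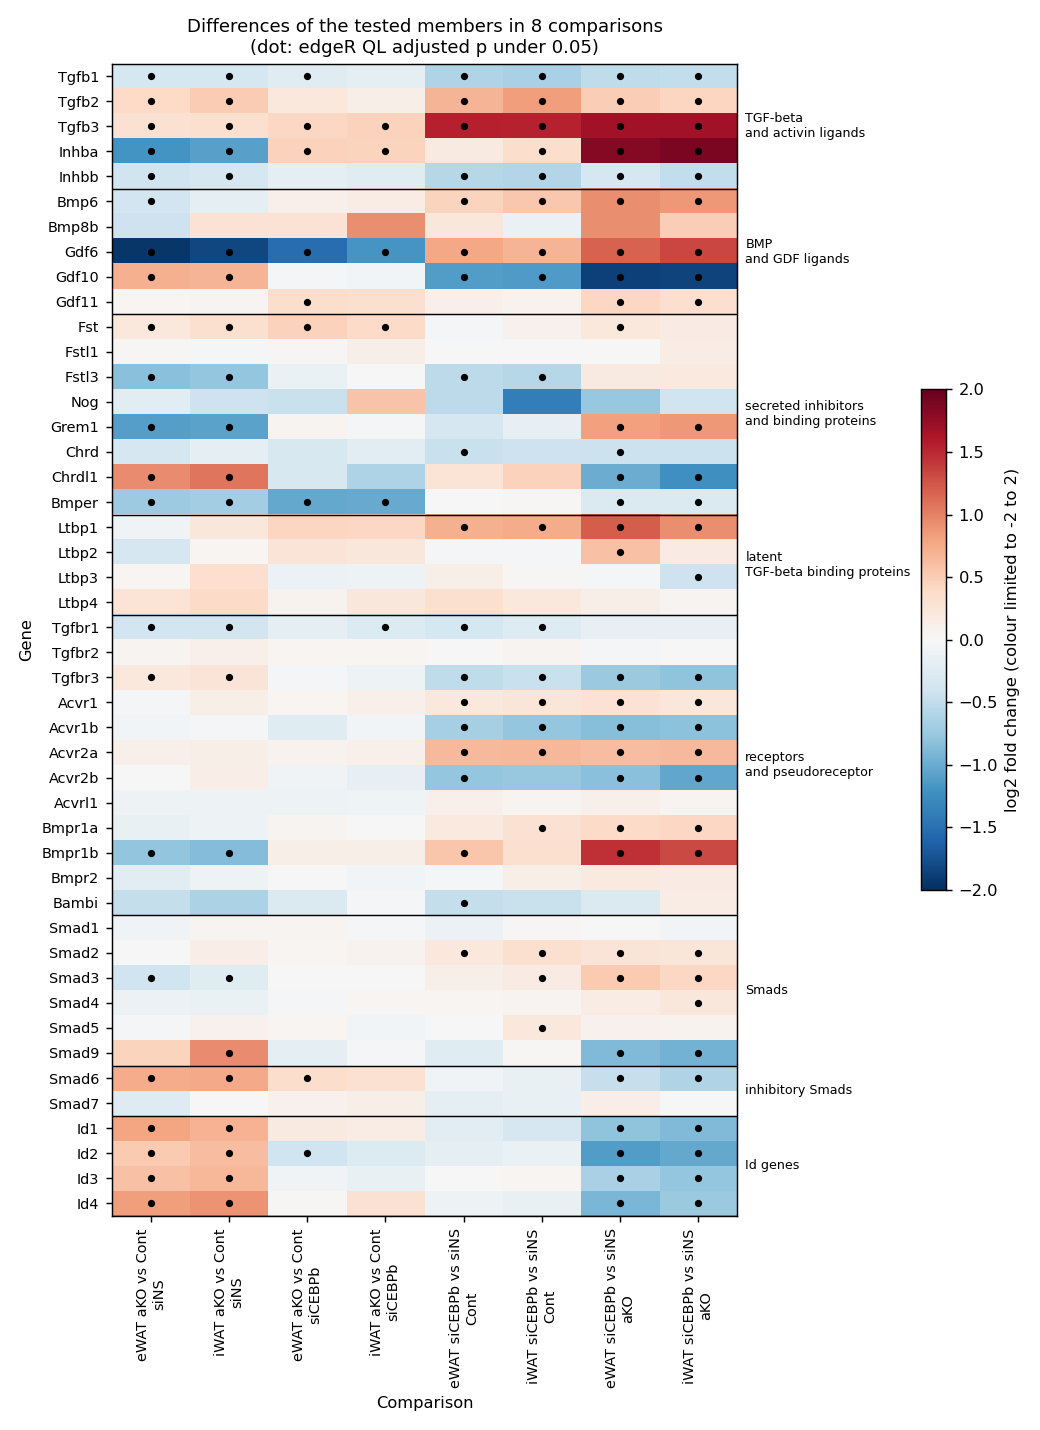
Log2 fold changes of the 46 tested members (vertical axis, grouped by role) in the 8 genotype and knockdown comparisons (horizontal axis). Colour gives the difference, limited to -2 to 2, and a dot an edgeR QL adjusted p under 0.05. The 4 Id genes are red in the siNS genotype columns and blue in the aKO knockdown columns, and Inhba is the reverse.

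The values below are CPM after scaling by TMM, given for replicates 1, 2 and 3 in that order. Differences are log2 fold changes. The number after the ± of a difference is an approximate SE, because edgeR's quasi-likelihood (QL) test reports none. It was worked back as the size of the log2 fold change divided by the square root of the F statistic. A gene is said to have risen or fallen where its adjusted p was under 0.05. These are bulk samples, so fewer cells of a type and less RNA per cell cannot be told apart. A member's level can be compared with another's only per length, as RPKM, which divides CPM by the length of the gene in kilobases. The highest mean over the 23 deeper libraries was 552 RPKM for Fstl1, followed by 115 for Tgfbr2, 77 for Tgfbr3 and 73.1 for Ltbp2. Among ligands Tgfb3 (56.3 RPKM) and Inhbb (50.1) led, ahead of Inhba (29.4) and Tgfb1 (16.2). BMP ligand genes were low, from 3.02 RPKM for Bmp6 to 0.00729 for Bmp7. Id3 was the most abundant Id gene at 62.5 RPKM, and Id4 the least at 3.80.

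Inhba encodes the beta A subunit of activin A, a Smad2 and Smad3 ligand. With siNS it was at 165, 169.7 and 164 CPM in eWAT Cont and 74.4, 74.5 and 68.1 in aKO. The iWAT libraries stood at 182, 174 and 171 in Cont and 84.1, 75.2 and 82.2 in aKO. Every aKO library lay below every Cont library, the shallow one included. The differences were -1.20 ± 0.12 in eWAT and -1.09 ± 0.13 in iWAT (edgeR QL adjusted p = 7.44e-08 and 2.11e-06), or 2.30-fold and 2.13-fold lower levels. With siCEBPb the order turned. The eWAT libraries were at 179, 196 and 188 CPM in Cont and 316, 218 and 239 in aKO, and those of iWAT at 217, 228 and 224 (Cont) and 388, 259.9 and 262 (aKO). All aKO libraries now lay above all Cont libraries, with aKO replicate 1 the highest in both depots, and the differences were 0.46 ± 0.12 in eWAT and 0.44 ± 0.12 in iWAT (edgeR QL adjusted p = 0.00985 and 0.0141). Within aKO, the knockdown raised Inhba with a log2 fold change of 1.83 ± 0.12 in eWAT and 1.88 ± 0.14 in iWAT (edgeR QL adjusted p = 1.10e-11 and 5.78e-11). In Cont cells the knockdown difference was 0.17 ± 0.12 in eWAT and 0.35 ± 0.12 in iWAT (edgeR QL adjusted p = 0.317 and 0.0346). The interaction was 1.66 ± 0.17 in eWAT and 1.53 ± 0.18 in iWAT (edgeR QL adjusted p = 1.15e-06 and 1.64e-05). For Inhba the eWAT siCEBPb genotype call ended without Cont replicate 1 or aKO replicate 1 (edgeR QL adjusted p = 0.0572 to 0.133) and with only the compared groups in the fit (adjusted p = 0.0616). For Inhba the iWAT siCEBPb genotype call ended without Cont replicates 1 or 3 or aKO replicate 1 (edgeR QL adjusted p = 0.0513 to 0.224) and with only the compared groups in the fit (adjusted p = 0.234). For Inhba the iWAT Cont knockdown call ended without siNS replicates 1, 2 or 3 or siCEBPb replicates 1, 2 or 3 (edgeR QL adjusted p = 0.0625 to 0.112) and without the shallow library in the fit (adjusted p = 0.0738).

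**Figure D2:**
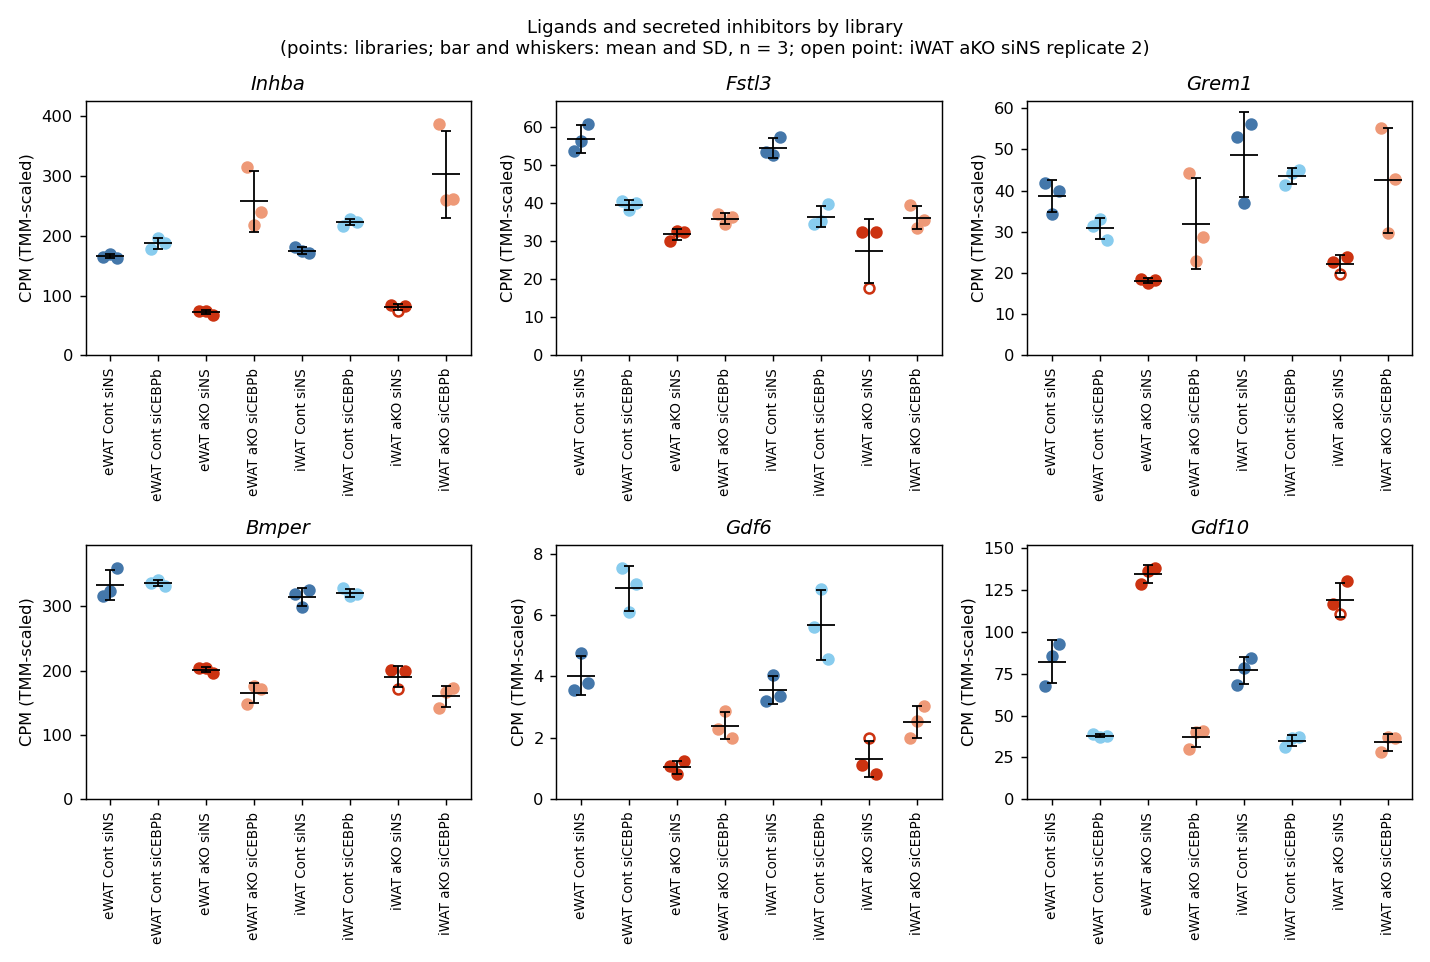
CPM (vertical axis, from 0) of 3 ligand genes and 3 genes of secreted inhibitors and binding proteins in the 24 libraries, by group (horizontal axis). Points are libraries, the bar and whiskers are mean and SD, and the open point is the shallow library. Inhba was at 68.1 to 84.1 CPM in the 6 aKO siNS libraries and at 218 to 388 in the 6 aKO siCEBPb libraries.

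Inhbb, the beta B subunit of activin B, had 275, 274 and 320.3 CPM in eWAT Cont siNS and 229, 208 and 219.6 in aKO siNS. In iWAT these were 272, 254 and 304 (Cont) and 206, 265 and 213 (aKO). The groups did not overlap in eWAT, and in iWAT the shallow library reached into the Cont range. Inhbb fell in aKO with a log2 fold change of -0.41 ± 0.094 in eWAT and -0.34 ± 0.10 in iWAT (edgeR QL adjusted p = 0.00240 and 0.0224). It also fell with the knockdown in Cont (-0.57 and -0.58 in eWAT and iWAT) and in aKO (-0.34 and -0.49). With siCEBPb its libraries were at 208, 177 and 201 (eWAT Cont), 185, 169 and 164 (eWAT aKO), 194, 170.5 and 191 (iWAT Cont) and 166, 136 and 166 (iWAT aKO). The subunit genes thus parted under the knockdown in aKO cells, Inhba upward and Inhbb downward. For Inhbb the iWAT siNS genotype call ended without Cont replicate 3 or aKO replicates 1 or 3 (edgeR QL adjusted p = 0.104 to 0.142) and with only the compared groups in the fit (adjusted p = 0.409). For Inhbb the iWAT aKO knockdown call ended with only the compared groups in the fit (adjusted p = 0.0555). Inhbb also passed the threshold in a fit without the shallow library, in the iWAT siCEBPb genotype comparison (-0.25, edgeR QL adjusted p = 0.0423).

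Of the TGF-beta and activin ligand genes 2 of 5 tested rose in eWAT aKO siNS and 3 fell, beside 9.50% and 10.9% of all tested genes. In iWAT 2 rose and 3 fell, beside 7.32% and 7.85%. The median differences were -0.35 in eWAT and -0.34 in iWAT. The 3 TGF-beta genes did not move together. With siNS, Tgfb1 was at 109.9, 111 and 108 CPM in eWAT Cont and 86.1, 89.2 and 83.2 in aKO, and at 118, 109.9 and 99.7 (Cont) and 89.1, 103 and 80.3 (aKO) in iWAT. Only the shallow library, the highest of the iWAT aKO values, overlapped with Cont. Tgfb1 fell in aKO with a log2 fold change of -0.35 ± 0.070 in eWAT and -0.34 ± 0.078 in iWAT (edgeR QL adjusted p = 5.86e-04 and 0.00262). Under siCEBPb it stood at 75.3, 68.3 and 73.1 CPM in eWAT Cont and 57.1, 66.2 and 59.3 in aKO, and at 73.2, 68.8 and 68.4 (Cont) and 60.7, 64.4 and 58.2 (aKO) in iWAT. All siCEBPb libraries lay below all siNS libraries of their depot and genotype, and Tgfb1 fell with the knockdown. The falls were -0.60 ± 0.070 in eWAT and -0.64 ± 0.072 in iWAT (edgeR QL adjusted p = 1.66e-07 and 1.11e-07) in Cont and -0.50 ± 0.072 in eWAT and -0.49 ± 0.079 in iWAT (edgeR QL adjusted p = 2.21e-06 and 1.47e-05) in aKO. With siCEBPb Tgfb1 also fell in eWAT aKO against Cont, by a log2 fold change of -0.25 ± 0.072 (edgeR QL adjusted p = 0.0226). For Tgfb1 the iWAT siNS genotype call ended without aKO replicate 3 (edgeR QL adjusted p = 0.0692) and with only the compared groups in the fit (adjusted p = 0.292). For Tgfb1 the eWAT siCEBPb genotype call ended without Cont replicates 1 or 3 or aKO replicates 1 or 3 (edgeR QL adjusted p = 0.0767 to 0.140) and without the filter on low counts (adjusted p = 0.107). Tgfb1 also passed the threshold in a fit without the shallow library, in the iWAT siCEBPb genotype comparison (-0.20, edgeR QL adjusted p = 0.0385).

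Tgfb3 had the largest knockdown difference of the tested ligand genes in Cont cells. In Cont it was at 88.6, 71.8 and 86 CPM with siNS and 243, 238 and 247 with siCEBPb in eWAT, and at 87.9, 69.9 and 85.5 (siNS) and 238, 239.7 and 229.9 (siCEBPb) in iWAT. In aKO it was at 108, 91.3 and 104 (siNS) and 352, 304 and 312 (siCEBPb) in eWAT, and at 106, 101 and 97.4 (siNS) and 346, 318 and 314 (siCEBPb) in iWAT. Every siCEBPb library exceeded every siNS library. The rises were 1.56 ± 0.089 in eWAT and 1.54 ± 0.091 in iWAT (edgeR QL adjusted p = 3.09e-13 and 8.42e-13) in Cont and 1.67 ± 0.089 in eWAT and 1.68 ± 0.097 in iWAT (edgeR QL adjusted p = 3.72e-14 and 4.50e-13) in aKO, or 2.91-fold to 3.20-fold. The interaction was 0.11 ± 0.12 in eWAT and 0.14 ± 0.13 in iWAT (edgeR QL adjusted p = 0.672 and 0.653). Between genotypes Tgfb3 rose in aKO with a log2 fold change of 0.30 ± 0.089 in eWAT and 0.33 ± 0.098 in iWAT (edgeR QL adjusted p = 0.0166 and 0.0221) with siNS and with a log2 fold change of 0.41 ± 0.086 in eWAT and 0.47 ± 0.086 in iWAT (edgeR QL adjusted p = 0.00143 and 4.47e-04) with siCEBPb. Tgfb3 overlaps Ttll5 on the opposite strand, and whether counting used strand is not known here. For Tgfb3 the eWAT siNS genotype call ended without Cont replicate 2 or aKO replicates 1 or 3 (edgeR QL adjusted p = 0.0717 to 0.139). For Tgfb3 the iWAT siNS genotype call ended without Cont replicate 2 or aKO replicates 1 or 3 (edgeR QL adjusted p = 0.0511 to 0.175) and with only the compared groups in the fit (adjusted p = 0.230).

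Tgfb2 was at 25.6, 22.4 and 25.8 CPM in eWAT Cont siNS and 34.5, 29.9 and 32.8 in aKO siNS, and at 25.9, 24.9 and 24.4 (Cont) and 35.1, 25.7 and 37.7 (aKO) in iWAT. The groups did not overlap in eWAT, and in iWAT the shallow library lay just inside the Cont range. It rose in aKO with a log2 fold change of 0.40 ± 0.079 in eWAT and 0.52 ± 0.089 in iWAT (edgeR QL adjusted p = 4.73e-04 and 1.56e-04). With siCEBPb Tgfb2 stood at 41.4, 38.8 and 38.4 in Cont and 46.9, 45.3 and 44.9 in aKO of eWAT, and 44.9, 46.3 and 43.2 (Cont) and 53.4, 45.7 and 47 (aKO) in iWAT. The knockdown raised it in Cont with a log2 fold change of 0.69 ± 0.077 in eWAT and 0.83 ± 0.081 in iWAT (edgeR QL adjusted p = 8.54e-08 and 8.38e-09) and in aKO with a log2 fold change of 0.50 ± 0.074 in eWAT and 0.44 ± 0.083 in iWAT (edgeR QL adjusted p = 4.59e-06 and 1.41e-04). Tgfb2 also passed the threshold in a fit without the shallow library, in the eWAT siCEBPb genotype comparison (0.21, edgeR QL adjusted p = 0.0411) and in the iWAT interaction comparison (-0.42, edgeR QL adjusted p = 0.0201).

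**Figure D3:**
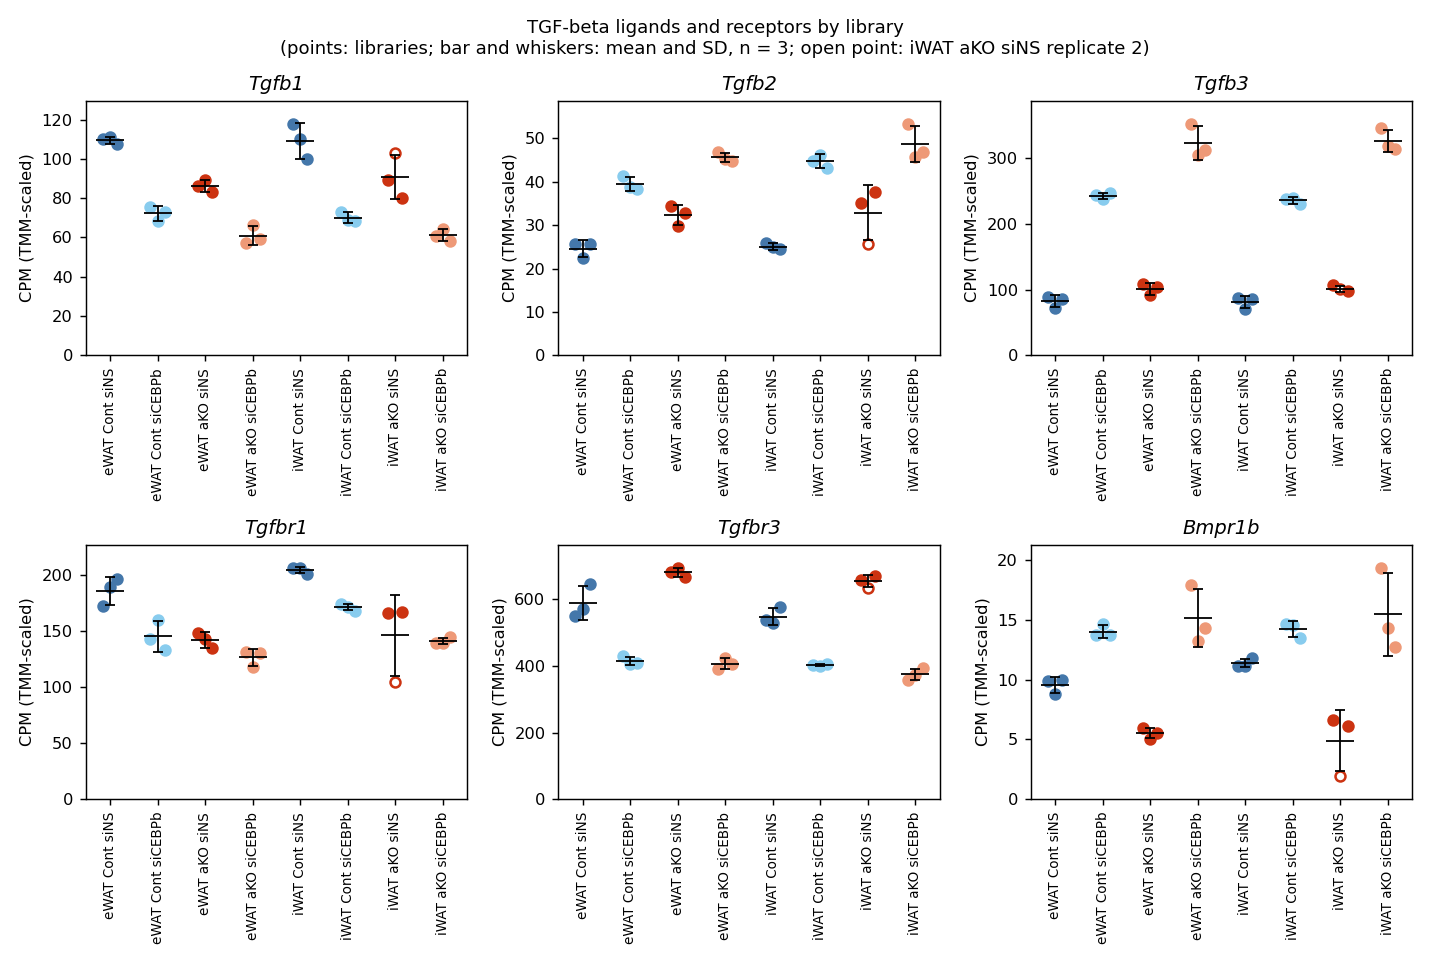
CPM (vertical axis, from 0) of the TGF-beta ligand genes and 3 receptor genes in the 24 libraries, by group (horizontal axis). Points are libraries, the bar and whiskers are mean and SD, and the open point is the shallow library. All 12 siCEBPb libraries of Tgfb3 sit at 229.9 to 352 CPM, above the 12 siNS libraries at 69.9 to 108.

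Of the 11 BMP and GDF genes 1 of 5 tested rose in eWAT aKO siNS and 2 fell, beside 9.50% and 10.9% of all tested genes. In iWAT 1 rose and 1 fell, beside 7.32% and 7.85%. The median differences were -0.38 in eWAT and 0.061 in iWAT. Gdf10, also called Bmp3b, was at 67.8, 85.7 and 92.9 CPM in eWAT Cont siNS and 128, 137 and 138 in aKO siNS. In iWAT it was at 68, 78.3 and 84.6 (Cont) and 117, 111 and 130.4 (aKO). All aKO libraries lay above all Cont libraries in both depots, and the rises were 0.71 ± 0.11 in eWAT and 0.67 ± 0.12 in iWAT (edgeR QL adjusted p = 3.47e-05 and 3.11e-04). With siCEBPb the genotypes overlapped, at 39, 37.2 and 37.8 CPM in Cont and 30.2, 40.0 and 40.7 in aKO of eWAT and 31.5, 36.5 and 37.1 (Cont) and 28.2, 36.9 and 36.9 (aKO) in iWAT. The knockdown lowered Gdf10 in Cont with a log2 fold change of -1.11 ± 0.12 in eWAT and -1.13 ± 0.12 in iWAT (edgeR QL adjusted p = 7.12e-08 and 1.51e-07) and in aKO with a log2 fold change of -1.87 ± 0.12 in eWAT and -1.85 ± 0.13 in iWAT (edgeR QL adjusted p = 5.36e-12 and 4.18e-11). The fall was larger in aKO, with an interaction of -0.76 ± 0.16 in eWAT and -0.72 ± 0.18 in iWAT (edgeR QL adjusted p = 0.00630 and 0.0200). For Gdf10 the iWAT interaction call ended without Cont siNS replicate 1, Cont siCEBPb replicates 2 or 3, aKO siNS replicate 3 or aKO siCEBPb replicate 1 (edgeR QL adjusted p = 0.0586 to 0.0955).

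Gdf6, a BMP-type ligand gene, was scarce and had the largest genotype difference of the called members. With siNS it was at 3.56, 4.75 and 3.77 CPM in eWAT Cont and 1.08, 0.813 and 1.23 in aKO, and at 3.21, 4.06 and 3.37 (Cont) and 1.12, 1.98 and 0.837 (aKO) in iWAT. In siCEBPb cells it was at 7.54, 6.09 and 6.99 (Cont) and 2.29, 2.88 and 2.01 (aKO) in eWAT, and at 5.61, 6.83 and 4.58 (Cont) and 1.99, 2.54 and 3.03 (aKO) in iWAT. In each depot and with each siRNA all aKO libraries lay below all Cont libraries. The falls were -1.94 ± 0.23 in eWAT and -1.82 ± 0.30 in iWAT (edgeR QL adjusted p = 5.57e-07 and 7.16e-05) with siNS, and -1.52 ± 0.18 in eWAT and -1.18 ± 0.19 in iWAT (edgeR QL adjusted p = 9.44e-07 and 1.07e-04) with siCEBPb. The knockdown raised Gdf6 in Cont with a log2 fold change of 0.77 ± 0.16 in eWAT and 0.69 ± 0.19 in iWAT (edgeR QL adjusted p = 6.64e-04 and 0.00814) and in aKO with a log2 fold change of 1.19 ± 0.26 in eWAT and 1.33 ± 0.31 in iWAT (edgeR QL adjusted p = 5.20e-04 and 0.00122). For Gdf6 the iWAT Cont knockdown call ended without siNS replicate 1 or siCEBPb replicate 2 (edgeR QL adjusted p = 0.0556 to 0.0946).

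Bmp6, a BMP ligand, rose with the knockdown in each depot and genotype. It was at 8.83, 10.7 and 13.2 CPM in eWAT Cont siNS and 14.7, 15.1 and 14.5 with siCEBPb, and in eWAT aKO at 7.08, 9.89 and 7.97 (siNS) and 14.7, 16.8 and 16.2 (siCEBPb). The iWAT libraries stood at 7.98, 7.72 and 10.8 (siNS) and 12.8, 13.4 and 11.6 (siCEBPb) in Cont, and at 6.97, 9.89 and 8.06 (siNS) and 13.6, 14.5 and 13.6 (siCEBPb) in aKO. The siNS and siCEBPb libraries did not overlap in any of the 4 settings. The rises were 0.44 ± 0.13 in eWAT and 0.53 ± 0.14 in iWAT (edgeR QL adjusted p = 0.00926 and 0.00669) in Cont and 0.93 ± 0.13 in eWAT and 0.87 ± 0.16 in iWAT (edgeR QL adjusted p = 1.72e-06 and 6.95e-05) in aKO. Bmp6 overlaps Txndc5, which has far more counts, on the opposite strand. Bmp6 also fell in eWAT aKO siNS (-0.38 ± 0.14, edgeR QL adjusted p = 0.0473). For Bmp6 the eWAT siNS genotype call ended without Cont replicates 2 or 3 or aKO replicates 1 or 3 (edgeR QL adjusted p = 0.0846 to 0.334), with the DESeq2 Wald test (adjusted p = 0.0646), with limma voom (adjusted p = 0.153), and with only the compared groups in the fit (adjusted p = 0.0793). For Bmp6 the eWAT Cont knockdown call ended without siNS replicate 1 (edgeR QL adjusted p = 0.106). For Bmp6 the iWAT Cont knockdown call ended without siNS replicates 1 or 2 (edgeR QL adjusted p = 0.0517 to 0.0540).

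Gdf11, an activin-like ligand, was at 34.4, 36.1 and 38.5 CPM in eWAT aKO siNS and 56.5, 39.7 and 48.2 with siCEBPb. In iWAT aKO these were 39.8, 43.5 and 40.5 (siNS) and 52.6, 47.9 and 52.1 (siCEBPb), and in the 12 Cont libraries it ranged from 30.3 to 48.1. All siCEBPb libraries lay above all siNS libraries of the same depot in aKO, and Gdf11 rose there with a log2 fold change of 0.41 ± 0.12 in eWAT and 0.34 ± 0.13 in iWAT (edgeR QL adjusted p = 0.00676 and 0.0490). In eWAT with siCEBPb it was also higher in aKO than in Cont with a log2 fold change of 0.35 ± 0.11 (edgeR QL adjusted p = 0.0476). Bmp8b, near the filter at 0.139 RPKM, had no call in the 12 comparisons. For Gdf11 the eWAT siCEBPb genotype call ended without Cont replicates 1, 2 or 3 or aKO replicates 1 or 3 (edgeR QL adjusted p = 0.0840 to 0.330), with DESeq2 size factors (adjusted p = 0.0541), with the stricter filter (adjusted p = 0.0571), with the DESeq2 Wald test (adjusted p = 0.0928), with only the compared groups in the fit (adjusted p = 0.0612), and without the shallow library in the fit (adjusted p = 0.0582). For Gdf11 the eWAT aKO knockdown call ended without siCEBPb replicate 1 (edgeR QL adjusted p = 0.0960). For Gdf11 the iWAT aKO knockdown call ended without siNS replicates 1, 2 or 3 or siCEBPb replicates 1, 2 or 3 (edgeR QL adjusted p = 0.0513 to 0.178), with the stricter filter (adjusted p = 0.0533), and with the DESeq2 Wald test (adjusted p = 0.0721).

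Of the secreted inhibitors and binding proteins 2 of 8 tested rose in eWAT aKO siNS and 3 fell, beside 9.50% and 10.9% of all tested genes. In iWAT 2 rose and 3 fell, beside 7.32% and 7.85%. The median differences were -0.28 in eWAT and -0.30 in iWAT. Fstl3, a secreted protein that binds activins, was at 53.6, 56.2 and 60.7 CPM in eWAT Cont siNS and 30.1, 32.6 and 32.5 in aKO siNS, and at 53.3, 52.7 and 57.4 (Cont) and 32.3, 17.8 and 32.4 (aKO) in iWAT. The groups did not overlap, and Fstl3 fell with a log2 fold change of -0.84 ± 0.077 in eWAT and -0.78 ± 0.089 in iWAT (edgeR QL adjusted p = 6.06e-09 and 4.56e-07). The siCEBPb libraries were at 40.4, 38 and 39.9 (Cont) and 37, 34.4 and 36.3 (aKO) in eWAT and at 34.4, 35.2 and 39.6 (Cont) and 39.3, 33.5 and 35.6 (aKO) in iWAT. Here aKO lay below Cont in eWAT and overlapped with it in iWAT, with differences of -0.14 ± 0.078 and -0.012 ± 0.080. In Cont the knockdown lowered Fstl3 with a log2 fold change of -0.53 ± 0.075 in eWAT and -0.58 ± 0.079 in iWAT (edgeR QL adjusted p = 3.65e-06 and 2.57e-06), while the aKO differences were 0.18 ± 0.079 and 0.19 ± 0.090 (edgeR QL adjusted p = 0.0855 and 0.114). The interaction was 0.70 ± 0.11 in eWAT and 0.77 ± 0.12 in iWAT (edgeR QL adjusted p = 1.99e-04 and 2.94e-04).

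Follistatin, Fst, the other activin-binding inhibitor, differed the other way. With siNS it was at 101, 99.5 and 103 CPM in eWAT Cont and 111, 116 and 124 in aKO, and at 95.9, 92.2 and 96 (Cont) and 115, 98.9 and 124 (aKO) in iWAT. With siCEBPb it was at 90.9, 104 and 102 (Cont) and 148, 128 and 132 (aKO) in eWAT, and at 99.2, 102 and 100.5 (Cont) and 135, 125 and 135 (aKO) in iWAT. All aKO libraries lay above all Cont libraries of the same depot and siRNA. The rises were 0.21 ± 0.069 in eWAT and 0.31 ± 0.076 in iWAT (edgeR QL adjusted p = 0.0292 and 0.00450) with siNS, and 0.46 ± 0.069 in eWAT and 0.39 ± 0.069 in iWAT (edgeR QL adjusted p = 3.03e-05 and 3.23e-04) with siCEBPb. In eWAT aKO the knockdown raised Fst with a log2 fold change of 0.22 ± 0.068 (edgeR QL adjusted p = 0.0140). Fstl1, the most abundant member, ranged from 2282 to 2865 CPM and had no call in the 12 comparisons. For Fst the eWAT siNS genotype call ended without Cont replicates 1, 2 or 3 or aKO replicates 2 or 3 (edgeR QL adjusted p = 0.0506 to 0.180), without the filter on low counts (adjusted p = 0.159), and with the DESeq2 Wald test (adjusted p = 0.0521). For Fst the iWAT siNS genotype call ended without aKO replicate 3 (edgeR QL adjusted p = 0.113) and with only the compared groups in the fit (adjusted p = 0.271). For Fst the eWAT aKO knockdown call ended without siNS replicates 1 or 2 or siCEBPb replicate 1 (edgeR QL adjusted p = 0.0717 to 0.172), without the filter on low counts (adjusted p = 0.0562), and with only the compared groups in the fit (adjusted p = 0.0523).

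Grem1 encodes gremlin 1, a BMP inhibitor. With siNS it was at 41.9, 34.4 and 39.9 CPM in eWAT Cont and 18.6, 17.5 and 18.3 in aKO, and at 53, 37 and 56.2 (Cont) and 22.6, 19.8 and 24 (aKO) in iWAT. All aKO libraries lay below all Cont libraries, and the falls were -1.10 ± 0.22 in eWAT and -1.07 ± 0.25 in iWAT (edgeR QL adjusted p = 0.00148 and 0.00559). Under siCEBPb it stood at 31.3, 33.1 and 28 (Cont) and 44.2, 22.9 and 28.8 (aKO) in eWAT and at 41.4, 44.3 and 44.9 (Cont) and 55.2, 29.6 and 42.7 (aKO) in iWAT. The genotypes overlapped there, with aKO replicate 1 the highest in both depots. Within aKO the knockdown raised Grem1 with a log2 fold change of 0.83 ± 0.23 in eWAT and 0.87 ± 0.25 in iWAT (edgeR QL adjusted p = 0.00728 and 0.0108), and the eWAT interaction was 1.16 ± 0.31 (edgeR QL adjusted p = 0.0315). For Grem1 the eWAT aKO knockdown call ended without siCEBPb replicate 1 (edgeR QL adjusted p = 0.0772). For Grem1 the iWAT aKO knockdown call ended without siNS replicate 1 or siCEBPb replicate 1 (edgeR QL adjusted p = 0.0624 to 0.0625). For Grem1 the eWAT interaction call ended without Cont siNS replicates 1 or 3, Cont siCEBPb replicates 1 or 3, aKO siNS replicates 1, 2 or 3 or aKO siCEBPb replicate 1 (edgeR QL adjusted p = 0.0574 to 0.102).

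Bmper, which binds BMPs and can block or promote them, was lower in aKO with either siRNA. With siNS it was at 315, 323 and 359.8 CPM in eWAT Cont and 204, 204 and 196 in aKO, and at 318, 299.6 and 326 (Cont) and 200.5, 172 and 199 (aKO) in iWAT. In siCEBPb cells it was at 335, 341 and 332 (Cont) and 148, 176 and 171 (aKO) in eWAT, and at 328, 317 and 319 (Cont) and 142, 166 and 173 (aKO) in iWAT. No aKO library reached a Cont library. The falls were -0.73 ± 0.080 in eWAT and -0.69 ± 0.086 in iWAT (edgeR QL adjusted p = 1.58e-07 and 1.59e-06) with siNS, and -1.03 ± 0.081 in eWAT and -1.0 ± 0.081 in iWAT (edgeR QL adjusted p = 1.24e-09 and 1.94e-09) with siCEBPb, or about 2.04-fold and 2.00-fold in the latter. The knockdown differences in Cont were 0.014 ± 0.079 and 0.029 ± 0.080, and in aKO -0.29 ± 0.081 in eWAT and -0.28 ± 0.086 in iWAT (edgeR QL adjusted p = 0.00615 and 0.0114). For Bmper the eWAT aKO knockdown call ended without siCEBPb replicate 1 (edgeR QL adjusted p = 0.0536). For Bmper the iWAT aKO knockdown call ended without siNS replicates 1 or 3 or siCEBPb replicate 1 (edgeR QL adjusted p = 0.0634 to 0.107), without the filter on low counts (adjusted p = 0.122), and with only the compared groups in the fit (adjusted p = 0.243). Bmper also passed the threshold in a fit without the shallow library, in the eWAT interaction comparison (-0.31, edgeR QL adjusted p = 0.0245) and in the iWAT interaction comparison (-0.35, edgeR QL adjusted p = 0.0256).

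Chrdl1, a chordin-like BMP inhibitor, was scarce. With siNS it was at 2.39, 2.58 and 2.35 CPM in eWAT Cont and 4.23, 4.74 and 5.12 in aKO, and at 1.73, 4.36 and 3.13 (Cont) and 6.37, 3.96 and 6.46 (aKO) in iWAT. The eWAT groups did not overlap, and in iWAT the shallow library lay within the Cont range. Chrdl1 rose with a log2 fold change of 0.95 ± 0.25 in eWAT and 1.08 ± 0.27 in iWAT (edgeR QL adjusted p = 0.00646 and 0.00639). The siCEBPb libraries were at 2.78, 3.51 and 2.60 in Cont and 1.77, 2.14 and 3.18 in aKO of eWAT, and at 3.33, 3.86 and 5.14 (Cont) and 1.61, 3.59 and 2.86 (aKO) in iWAT. The knockdown lowered it in aKO with a log2 fold change of -1.0 ± 0.25 in eWAT and -1.23 ± 0.26 in iWAT (edgeR QL adjusted p = 0.00236 and 6.20e-04), and the interaction was -1.27 ± 0.37 in eWAT and -1.69 ± 0.38 in iWAT (edgeR QL adjusted p = 0.0355 and 0.00922). Chrd and Nog, further BMP inhibitors, had no genotype call. Chrd fell with the knockdown in eWAT with a log2 fold change of -0.45 ± 0.15 in Cont and -0.42 ± 0.16 in aKO (edgeR QL adjusted p = 0.0228 and 0.0362). For Chrdl1 the iWAT siNS genotype call ended without Cont replicate 1 or aKO replicate 3 (edgeR QL adjusted p = 0.0540 to 0.0792) and with only the compared groups in the fit (adjusted p = 0.0851). For Chrdl1 the eWAT interaction call ended without Cont siNS replicates 1, 2 or 3, Cont siCEBPb replicates 1, 2 or 3, aKO siNS replicates 2 or 3 or aKO siCEBPb replicates 1 or 2 (edgeR QL adjusted p = 0.0517 to 0.120). For Chrdl1 the iWAT interaction call ended with only the compared groups in the fit (adjusted p = 0.0584). For Chrd the eWAT Cont knockdown call ended without siNS replicate 1 or siCEBPb replicate 2 (edgeR QL adjusted p = 0.0641 to 0.158) and with the DESeq2 Wald test (adjusted p = 0.0710). For Chrd the eWAT aKO knockdown call ended without siNS replicates 1 or 2 or siCEBPb replicate 1 (edgeR QL adjusted p = 0.0882 to 0.194) and with the DESeq2 Wald test (adjusted p = 0.0931). Nog also passed the threshold in a fit without the shallow library, in the iWAT Cont knockdown comparison (-1.39, edgeR QL adjusted p = 0.0392).

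Latent TGF-beta binding proteins hold TGF-beta in the matrix. In the genotype comparisons edgeR QL (adjusted) called 0 of the 4 genes in either depot with either siRNA. At an unadjusted p under 0.05 there were 1 in eWAT and 2 in iWAT with siNS, and 1 in each with siCEBPb. DESeq2 called 0 in all 4 of these comparisons, and limma voom 1 in eWAT with siNS and 0 in the others. Ltbp1 responded to the knockdown instead. It was at 21.6, 20.4 and 19.9 CPM in eWAT Cont siNS and 36.1, 30.6 and 34.8 with siCEBPb, and in aKO at 21.1, 19.4 and 18.6 (siNS) and 58.3, 41 and 37.8 (siCEBPb). In iWAT it was at 20.6, 15.2 and 17.6 (siNS) and 29.7, 30.5 and 30.0 (siCEBPb) in Cont, and at 20.7, 35.6 and 19.8 (siNS) and 51.7, 31.2 and 36.9 (siCEBPb) in aKO. The siRNA groups did not overlap in 3 of the 4 settings, and in iWAT aKO the shallow library lay within the siCEBPb range. The rises were 0.72 ± 0.17 in eWAT and 0.75 ± 0.18 in iWAT (edgeR QL adjusted p = 0.00229 and 0.00408) in Cont and 1.22 ± 0.16 in eWAT and 0.94 ± 0.19 in iWAT (edgeR QL adjusted p = 3.85e-06 and 5.70e-04) in aKO. Ltbp2 also rose with the knockdown in eWAT aKO (0.59 ± 0.16, edgeR QL adjusted p = 0.00545). Ltbp4 had no call in the 12 comparisons. Ltbp2 also passed the threshold in a fit without the shallow library, in the eWAT siNS genotype comparison (-0.34, edgeR QL adjusted p = 0.0333), in the iWAT aKO knockdown comparison (0.44, edgeR QL adjusted p = 0.0117) and in the eWAT interaction comparison (0.60, edgeR QL adjusted p = 0.0205).

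Of the receptor genes 1 of 12 tested rose in eWAT aKO siNS and 2 fell, beside 9.50% and 10.9% of all tested genes. In iWAT 1 rose and 2 fell, beside 7.32% and 7.85%. The median differences were -0.079 in eWAT and -0.056 in iWAT. Leaving out the shallow library changed the eWAT calls to 1 higher and 4 lower, beside 1901 and 1956 of 14973 genes. The iWAT calls became 1 higher and 3 lower, beside 1341 and 1411. Bmpr1b, a type I BMP receptor, was at 9.92, 8.82 and 9.97 CPM in eWAT Cont siNS and 5.93, 5.08 and 5.57 in aKO siNS, and at 11.2, 11.2 and 11.8 (Cont) and 6.63, 1.98 and 6.08 (aKO) in iWAT. No aKO library reached a Cont library, and Bmpr1b fell with a log2 fold change of -0.79 ± 0.15 in eWAT and -0.87 ± 0.17 in iWAT (edgeR QL adjusted p = 2.83e-04 and 6.77e-04). With siCEBPb it was at 13.8, 14.6 and 13.7 (Cont) and 17.9, 13.2 and 14.3 (aKO) in eWAT, and at 14.6, 14.6 and 13.5 (Cont) and 19.4, 14.3 and 12.7 (aKO) in iWAT. The genotypes overlapped there. The knockdown raised it in aKO with a log2 fold change of 1.46 ± 0.14 in eWAT and 1.31 ± 0.16 in iWAT (edgeR QL adjusted p = 3.32e-09 and 2.72e-07), or 2.75-fold and 2.49-fold, and the interaction was 0.91 ± 0.19 in eWAT and 0.99 ± 0.21 in iWAT (edgeR QL adjusted p = 0.00452 and 0.00696). Bmpr1a, the other type I BMP receptor gene, had no genotype call, and rose with the knockdown in aKO with a log2 fold change of 0.39 ± 0.085 in eWAT and 0.41 ± 0.091 in iWAT (edgeR QL adjusted p = 6.22e-04 and 8.23e-04). In iWAT Cont it rose with a log2 fold change of 0.31 ± 0.086 (edgeR QL adjusted p = 0.00803), and Bmpr1b rose in eWAT Cont with a log2 fold change of 0.55 ± 0.13 (edgeR QL adjusted p = 0.00173). For Bmpr1a the iWAT Cont knockdown call ended without siNS replicate 1 or siCEBPb replicate 2 (edgeR QL adjusted p = 0.0517 to 0.0673). For Bmpr1a the iWAT aKO knockdown call ended with only the compared groups in the fit (adjusted p = 0.0951). Bmpr1a also passed the threshold in a fit without the shallow library, in the eWAT Cont knockdown comparison (0.19, edgeR QL adjusted p = 0.0253).

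Tgfbr1, the type I TGF-beta receptor, was at 172, 189.7 and 196 CPM in eWAT Cont siNS and 149, 143 and 135 in aKO siNS, and at 206, 207 and 201 (Cont) and 166, 105 and 167 (aKO) in iWAT. It fell with a log2 fold change of -0.39 ± 0.085 in eWAT and -0.37 ± 0.091 in iWAT (edgeR QL adjusted p = 0.00136 and 0.00526), with no overlap of the groups. Under siCEBPb it stood at 143, 160.0 and 133 in Cont and 131, 118 and 131 in aKO of eWAT, and at 174, 172 and 168 (Cont) and 139, 139.7 and 144 (aKO) in iWAT. It fell with the knockdown in Cont with a log2 fold change of -0.36 ± 0.085 in eWAT and -0.26 ± 0.085 in iWAT (edgeR QL adjusted p = 0.00198 and 0.0286). With siCEBPb it was lower in iWAT aKO than in Cont with a log2 fold change of -0.28 ± 0.086 (edgeR QL adjusted p = 0.0342). Tgfbr2, the type II receptor, had no call in the 12 comparisons. For Tgfbr1 the iWAT siNS genotype call ended with only the compared groups in the fit (adjusted p = 0.230). For Tgfbr1 the iWAT siCEBPb genotype call ended without Cont replicates 1, 2 or 3 or aKO replicates 1, 2 or 3 (edgeR QL adjusted p = 0.0631 to 0.113) and without the filter on low counts (adjusted p = 0.121). For Tgfbr1 the iWAT Cont knockdown call ended without siNS replicates 1, 2 or 3 or siCEBPb replicates 1, 2 or 3 (edgeR QL adjusted p = 0.0568 to 0.0839) and without the filter on low counts (adjusted p = 0.0846). Tgfbr1 also passed the threshold in a fit without the shallow library, in the eWAT siCEBPb genotype comparison (-0.20, edgeR QL adjusted p = 0.0183), in the eWAT aKO knockdown comparison (-0.19, edgeR QL adjusted p = 0.0130) and in the iWAT aKO knockdown comparison (-0.25, edgeR QL adjusted p = 0.00357).

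Tgfbr3, the co-receptor betaglycan, was at 551, 572 and 647 CPM in eWAT Cont siNS and 682, 695 and 667 in aKO siNS, and at 538, 529 and 577 (Cont) and 658, 635 and 671 (aKO) in iWAT. In siCEBPb cells it was at 429.7, 407 and 408 in Cont and 391, 425 and 405 in aKO of eWAT, and at 403, 401 and 406 (Cont) and 358, 373 and 393 (aKO) in iWAT. Every siCEBPb library lay below every siNS library of its depot. Tgfbr3 fell with the knockdown in Cont with a log2 fold change of -0.51 ± 0.075 in eWAT and -0.44 ± 0.076 in iWAT (edgeR QL adjusted p = 6.39e-06 and 5.09e-05) and in aKO with a log2 fold change of -0.74 ± 0.075 in eWAT and -0.81 ± 0.077 in iWAT (edgeR QL adjusted p = 8.12e-09 and 3.94e-09). With siNS it rose in aKO with a log2 fold change of 0.21 ± 0.075 in eWAT and 0.26 ± 0.077 in iWAT (edgeR QL adjusted p = 0.0494 and 0.0198). For Tgfbr3 the eWAT siNS genotype call ended without Cont replicates 1 or 2 or aKO replicates 1, 2 or 3 (edgeR QL adjusted p = 0.0956 to 0.224), with DESeq2 size factors (adjusted p = 0.0643), without the filter on low counts (adjusted p = 0.310), and with the replicate block (adjusted p = 0.0511). For Tgfbr3 the iWAT siNS genotype call ended without Cont replicates 1 or 2 or aKO replicates 1 or 3 (edgeR QL adjusted p = 0.0649 to 0.0985), without the filter on low counts (adjusted p = 0.148), and with only the compared groups in the fit (adjusted p = 0.384). Tgfbr3 also passed the threshold in a fit without the shallow library, in the eWAT interaction comparison (-0.24, edgeR QL adjusted p = 0.0407) and in the iWAT interaction comparison (-0.38, edgeR QL adjusted p = 0.00396).

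The activin receptor members Acvr2a and Acvr1b had no genotype call with all libraries and were called with the knockdown. Acvr2a, a type II receptor, was at 96.6, 96.9 and 108 CPM in eWAT Cont siNS and 155, 172 and 143 with siCEBPb, and in aKO at 101, 113 and 107 (siNS) and 169.9, 158 and 167 (siCEBPb). The iWAT libraries stood at 121, 110.5 and 108 (siNS) and 178, 185 and 177 (siCEBPb) in Cont, and at 131, 63.3 and 129 (siNS) and 183, 199 and 194 (siCEBPb) in aKO. It rose with a log2 fold change of 0.64 ± 0.097 in eWAT and 0.67 ± 0.098 in iWAT (edgeR QL adjusted p = 8.22e-06 and 6.07e-06) in Cont and with a log2 fold change of 0.62 ± 0.097 in eWAT and 0.65 ± 0.10 in iWAT (edgeR QL adjusted p = 8.42e-06 and 1.47e-05) in aKO, with no overlap. Acvr1b, the type I activin receptor, fell instead. In eWAT it was at 58.5, 56.2 and 60.9 (siNS) and 36.4, 35.3 and 38.8 (siCEBPb) in Cont, and at 60.7, 54.1 and 53.6 (siNS) and 29.6, 34.9 and 29.1 (siCEBPb) in aKO. In iWAT it was at 46.3, 41.9 and 44.6 (siNS) and 25.9, 26.9 and 24.8 (siCEBPb) in Cont, and at 42.3, 65.3 and 42.9 (siNS) and 22.6, 24 and 28 (siCEBPb) in aKO. In each depot all siCEBPb libraries lay below all siNS libraries, and the falls were -0.67 ± 0.083 in eWAT and -0.78 ± 0.092 in iWAT (edgeR QL adjusted p = 4.31e-07 and 2.72e-07) in Cont and -0.85 ± 0.085 in eWAT and -0.82 ± 0.099 in iWAT (edgeR QL adjusted p = 6.36e-09 and 1.98e-07) in aKO. Acvr2a overlaps Orc4 on the opposite strand. For Acvr2a the iWAT aKO knockdown call ended with only the compared groups in the fit (adjusted p = 0.0553). Acvr1b also passed the threshold in a fit without the shallow library, in the eWAT siCEBPb genotype comparison (-0.24, edgeR QL adjusted p = 0.0283).

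Acvr1, a type I receptor shared by BMPs and activins, rose with the knockdown, at a log2 fold change of 0.21 to 0.29 in the 4 settings, and in each depot all its siCEBPb libraries lay above all its siNS libraries. It was at 80.9 to 93.5 CPM with siNS and 98 to 107 with siCEBPb in eWAT, and at 77.8 to 87 and 91.6 to 102 in iWAT. Acvr2b, another type II receptor, fell in 3 of the 4 settings but was at no more than 2.04 CPM, and its differences were -0.78 in eWAT Cont, -0.83 in eWAT aKO and -1.04 in iWAT aKO. For Acvr2b the eWAT Cont knockdown call ended without siNS replicates 1 or 2 or siCEBPb replicates 1 or 3 (edgeR QL adjusted p = 0.0875 to 0.225), without the filter on low counts (adjusted p = 0.0816), and with the DESeq2 Wald test (adjusted p = 0.125). For Acvr2b the eWAT aKO knockdown call ended without siNS replicate 3 or siCEBPb replicates 1 or 3 (edgeR QL adjusted p = 0.0777 to 0.189), without the filter on low counts (adjusted p = 0.0538), with the DESeq2 Wald test (adjusted p = 0.0851), and with only the compared groups in the fit (adjusted p = 0.0546). For Acvr2b the iWAT aKO knockdown call ended without siNS replicates 1 or 3 or siCEBPb replicates 1 or 3 (edgeR QL adjusted p = 0.0668 to 0.119), without the filter on low counts (adjusted p = 0.0688), with the DESeq2 Wald test (adjusted p = 0.0722), and with only the compared groups in the fit (adjusted p = 0.0567). Acvrl1 and Bmpr2 had no call in the 12 comparisons with all libraries. Bmpr2 also passed the threshold in a fit without the shallow library, in the eWAT siNS genotype comparison (-0.22, edgeR QL adjusted p = 0.0208), in the eWAT aKO knockdown comparison (0.18, edgeR QL adjusted p = 0.0452) and in the depot comparison (0.28, edgeR QL adjusted p = 0.0142). Bambi, a pseudoreceptor that blocks the signal, fell with the knockdown in eWAT Cont (-0.47 ± 0.17, edgeR QL adjusted p = 0.0452). For Acvr1 the eWAT Cont knockdown call ended without siNS replicate 1 or siCEBPb replicate 1 (edgeR QL adjusted p = 0.0667 to 0.0881) and without the filter on low counts (adjusted p = 0.110). For Acvr1 the iWAT aKO knockdown call ended without siNS replicate 1 (edgeR QL adjusted p = 0.0557) and with only the compared groups in the fit (adjusted p = 0.246). For Bambi the eWAT Cont knockdown call ended without siNS replicates 2 or 3 or siCEBPb replicates 1, 2 or 3 (edgeR QL adjusted p = 0.0731 to 0.232) and with the DESeq2 Wald test (adjusted p = 0.137). Bambi also passed the threshold in a fit without the shallow library, in the eWAT siNS genotype comparison (-0.47, edgeR QL adjusted p = 0.0296) and in the iWAT siNS genotype comparison (-0.60, edgeR QL adjusted p = 0.0414).

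Of the signalling Smads 0 of 6 tested rose in eWAT aKO siNS and 1 fell, beside 9.50% and 10.9% of all tested genes. In iWAT 1 rose and 1 fell, beside 7.32% and 7.85%. The median differences were -0.056 in eWAT and 0.071 in iWAT. Leaving out the shallow library changed the eWAT calls to 1 higher and 1 lower, beside 1901 and 1956 of 14973 genes. Smad3, which carries the TGF-beta and activin signal, was at 68.4, 68.8 and 72.7 CPM in eWAT Cont siNS and 53.1, 53.2 and 53.1 in aKO siNS. The iWAT libraries stood at 64.9, 67 and 66.2 (Cont) and 55.2, 67.2 and 54.9 (aKO). The eWAT groups did not overlap, and in iWAT only the shallow library, above all 3 Cont libraries, stood apart from the other aKO libraries. Smad3 fell with a log2 fold change of -0.40 ± 0.060 in eWAT and -0.24 ± 0.068 in iWAT (edgeR QL adjusted p = 1.74e-05 and 0.0141), and without the shallow library the iWAT difference was -0.27 (edgeR QL adjusted p = 0.00274). The siCEBPb libraries were at 77.8, 76.1 and 74.3 (Cont) and 73.7, 79.6 and 76.4 (aKO) in eWAT, and at 78, 71.4 and 73 (Cont) and 70.0, 75.7 and 77.6 (aKO) in iWAT, with the genotypes overlapping. The knockdown raised Smad3 in aKO with a log2 fold change of 0.53 ± 0.059 in eWAT and 0.41 ± 0.067 in iWAT (edgeR QL adjusted p = 4.90e-08 and 1.63e-05), and the eWAT interaction was 0.40 ± 0.083 (edgeR QL adjusted p = 0.00321). In iWAT Cont the rise was 0.17 ± 0.061 (edgeR QL adjusted p = 0.0456). For Smad3 the iWAT siNS genotype call ended without aKO replicates 1 or 3 (edgeR QL adjusted p = 0.0790 to 0.0966), without the filter on low counts (adjusted p = 0.198), and with only the compared groups in the fit (adjusted p = 0.298). For Smad3 the iWAT Cont knockdown call ended without siNS replicates 1, 2 or 3 or siCEBPb replicates 1, 2 or 3 (edgeR QL adjusted p = 0.0532 to 0.206), without the filter on low counts (adjusted p = 0.228), with the stricter filter (adjusted p = 0.0596), with the DESeq2 Wald test (adjusted p = 0.0642), and with the replicate block (adjusted p = 0.0557).

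Smad2, its partner, had no genotype call and rose with the knockdown, at a log2 fold change of 0.21 (eWAT) and 0.32 (iWAT) in Cont and with a log2 fold change of 0.26 and 0.25 in aKO. Its siNS libraries lay at 35.6 to 50.0 CPM and its siCEBPb libraries at 47.4 to 58.6. Smad4, the shared partner, rose with the knockdown in iWAT aKO (0.23 ± 0.082, edgeR QL adjusted p = 0.0364), and Smad5 in iWAT Cont (0.21 ± 0.073, edgeR QL adjusted p = 0.0339). Smad1 had no call in the 12 comparisons. Smad9 was at 5.54, 5.02 and 6.62 CPM in eWAT Cont siNS and 7.85, 6.70 and 8.87 in aKO siNS, and at 5.59, 4.06 and 3.49 (Cont) and 7.83, 5.93 and 9.51 (aKO) in iWAT. All aKO libraries lay above all Cont libraries. The differences were 0.45 ± 0.18 in eWAT and 0.94 ± 0.21 in iWAT (edgeR QL adjusted p = 0.0736 and 0.00275), so only iWAT passed the threshold. With siCEBPb it was at 5.75, 5.36 and 3.40 (Cont) and 4.39, 3.47 and 4.77 (aKO) in eWAT, and at 4.28, 5.57 and 3.78 (Cont) and 4.36, 5.00 and 3.96 (aKO) in iWAT, and in aKO it fell with the knockdown, at a log2 fold change of -0.89 ± 0.19 in eWAT and -0.95 ± 0.21 in iWAT (edgeR QL adjusted p = 3.82e-04 and 6.96e-04). For Smad2 the eWAT Cont knockdown call ended without siNS replicates 1 or 2 or siCEBPb replicates 1 or 2 (edgeR QL adjusted p = 0.0817 to 0.177), without the filter on low counts (adjusted p = 0.136), and with the DESeq2 Wald test (adjusted p = 0.0835). For Smad2 the eWAT aKO knockdown call ended without siNS replicate 1 or siCEBPb replicate 1 (edgeR QL adjusted p = 0.0576 to 0.0593). For Smad2 the iWAT aKO knockdown call ended without siNS replicate 1 (edgeR QL adjusted p = 0.0705) and with only the compared groups in the fit (adjusted p = 0.119). For Smad4 the iWAT aKO knockdown call ended without siNS replicate 1 or siCEBPb replicates 2 or 3 (edgeR QL adjusted p = 0.0582 to 0.125) and with only the compared groups in the fit (adjusted p = 0.344). For Smad5 the iWAT Cont knockdown call ended without siNS replicates 1 or 2 or siCEBPb replicates 1, 2 or 3 (edgeR QL adjusted p = 0.0506 to 0.171) and without the filter on low counts (adjusted p = 0.0764). For Smad9 the iWAT siNS genotype call ended without aKO replicate 3 (edgeR QL adjusted p = 0.0707). Smad4 also passed the threshold in a fit without the shallow library, in the eWAT aKO knockdown comparison (0.13, edgeR QL adjusted p = 0.0426). Smad9 also passed the threshold in a fit without the shallow library, in the eWAT siNS genotype comparison (0.45, edgeR QL adjusted p = 0.0493) and in the iWAT interaction comparison (-0.99, edgeR QL adjusted p = 0.0382).

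Smad6, the inhibitory Smad of the BMP branch and itself a BMP target, was at 20.8, 20.4 and 24.5 CPM in eWAT Cont siNS and 36.6, 35.4 and 37.8 in aKO siNS. In iWAT it was at 19, 17.8 and 19.4 (Cont) and 28.7, 19.8 and 35.7 (aKO). All aKO libraries lay above all Cont libraries, the shallow one only just. Smad6 rose with a log2 fold change of 0.74 ± 0.10 in eWAT and 0.76 ± 0.12 in iWAT (edgeR QL adjusted p = 3.32e-06 and 3.83e-05), or 1.68-fold and 1.70-fold. Under siCEBPb it stood at 20.8, 21.1 and 20.4 in Cont and 28.1, 28.9 and 22.7 in aKO of eWAT, and at 15.6, 19.2 and 15.4 (Cont) and 21.9, 21.2 and 19.3 (aKO) in iWAT. All aKO libraries again lay above all Cont libraries, but the differences were smaller, 0.35 ± 0.10 in eWAT and 0.31 ± 0.11 in iWAT (edgeR QL adjusted p = 0.0224 and 0.0866). The interaction was -0.39 ± 0.14 and -0.45 ± 0.16 (edgeR QL adjusted p = 0.106 and 0.130), so the smaller difference with siCEBPb did not pass the test. Within aKO, the knockdown lowered Smad6 with a log2 fold change of -0.46 ± 0.098 in eWAT and -0.61 ± 0.11 in iWAT (edgeR QL adjusted p = 3.97e-04 and 1.19e-04). Smad7, the inhibitory Smad of both branches, had no call in the 12 comparisons. For Smad6 the eWAT siCEBPb genotype call ended without Cont replicates 1, 2 or 3 or aKO replicates 1 or 2 (edgeR QL adjusted p = 0.0553 to 0.119) and with the DESeq2 Wald test (adjusted p = 0.0697).

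The 4 Id genes encode helix-loop-helix proteins that lack a DNA binding domain and are classic BMP targets. All 4 rose in aKO of both depots with siNS, beside 9.50% (eWAT) and 7.32% (iWAT) of all tested genes. Their median difference was 0.68 in eWAT and 0.67 in iWAT. Id1 was at 16.6, 14.5 and 14.4 CPM in eWAT Cont and 21.2, 25.4 and 31.4 in aKO, and at 14.2, 11.7 and 13.8 (Cont) and 20.7, 15.8 and 22.5 (aKO) in iWAT. Id2 was at 32.1, 29.1 and 26.8 (Cont) and 37.4, 41.8 and 47.4 (aKO) in eWAT, and at 29.5, 24.2 and 24.4 (Cont) and 39.6, 11.9 and 43.7 (aKO) in iWAT. In eWAT no aKO library of either gene reached down to a Cont library. In iWAT the same held for the deeper aKO libraries, but the shallow library, with 6 counts of Id2, lay below all Cont libraries for that gene.

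Id3 was at 109.8, 112 and 108 CPM in eWAT Cont siNS and 147, 156 and 189 in aKO siNS, and at 93, 89 and 91.7 (Cont) and 139, 87 and 164 (aKO) in iWAT. Id4 was at 13, 13.8 and 13.6 (Cont) and 23.3, 23.1 and 25.5 (aKO) in eWAT, and at 12.3, 10.00 and 12.4 (Cont) and 21.1, 9.89 and 23.1 (aKO) in iWAT. The pattern was the same, with the shallow library below the Cont range for both genes and the other 5 aKO libraries above it. The differences for Id1 were 0.78 ± 0.12 in eWAT and 0.69 ± 0.15 in iWAT (edgeR QL adjusted p = 2.54e-05 and 0.00135). For Id2 they were 0.53 ± 0.10 in eWAT and 0.62 ± 0.12 in iWAT (edgeR QL adjusted p = 5.08e-04 and 6.35e-04), for Id3 0.58 ± 0.10 in eWAT and 0.66 ± 0.11 in iWAT (edgeR QL adjusted p = 1.02e-04 and 1.01e-04), and for Id4 0.83 ± 0.10 in eWAT and 0.90 ± 0.12 in iWAT (edgeR QL adjusted p = 1.28e-06 and 7.46e-06). These are 1.44-fold to 1.87-fold rises. Without the shallow library the iWAT differences of Id1 to Id4 were 0.70, 0.67, 0.73 and 0.93. The 8 calls remained when each library was left out in turn. For Id2 the iWAT siNS genotype call ended with only the compared groups in the fit (adjusted p = 0.112). For Id3 the iWAT siNS genotype call ended with only the compared groups in the fit (adjusted p = 0.128).

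**Figure D4:**
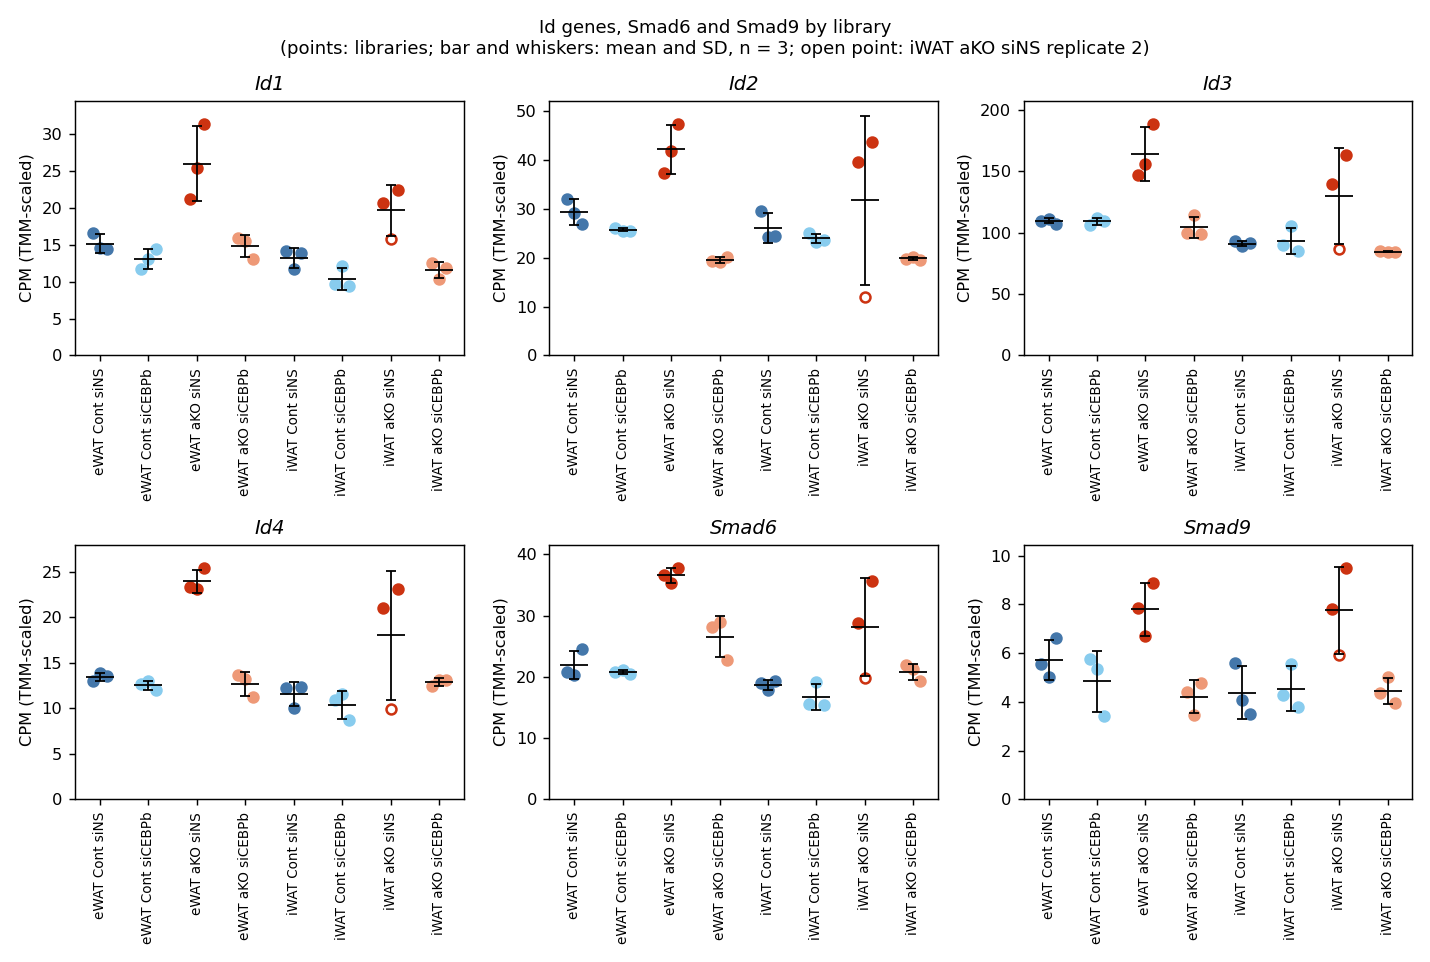
CPM (vertical axis, from 0) of the 4 Id genes, Smad6 and Smad9 in the 24 libraries, by group (horizontal axis). Points are libraries, the bar and whiskers are mean and SD, and the open point is the shallow library. The eWAT aKO siNS libraries of Id4 sit at 23.1 to 25.5 CPM, and those of Cont siNS at 13 to 13.8.

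With siCEBPb edgeR QL called 1 of the 4 Id genes between the genotypes in eWAT, Id2, and 0 in iWAT. At an unadjusted p under 0.05 there were 1 and 2, DESeq2 called 0 and 0, and limma voom 1 and 2. Id1 was at 11.7, 13.1 and 14.5 CPM in eWAT Cont and 16, 15.5 and 13.1 in aKO, and at 9.70, 12.1 and 9.40 (Cont) and 12.6, 10.4 and 11.9 (aKO) in iWAT. Id2 was at 26.1, 25.5 and 25.5 (Cont) and 19.3, 19.1 and 20.2 (aKO) in eWAT, and at 25, 23.3 and 23.6 (Cont) and 19.7, 20.2 and 19.6 (aKO) in iWAT. Id2 thus lay lower in every aKO than in every Cont library, and fell in eWAT with a log2 fold change of -0.40 ± 0.11 (edgeR QL adjusted p = 0.0206). Id3 was at 106, 112 and 109 (Cont) and 99.7, 114 and 99.1 (aKO) in eWAT, and at 90.1, 106 and 85 (Cont) and 85.2, 84.6 and 84.2 (aKO) in iWAT. Id4 was at 12.7, 13 and 12 (Cont) and 13.6, 13.2 and 11.2 (aKO) in eWAT, and at 10.9, 11.6 and 8.67 (Cont) and 12.4, 13.1 and 13.1 (aKO) in iWAT. The genotypes overlapped for Id1 and Id3 in both depots and for Id4 in eWAT, while all iWAT aKO libraries of Id4 lay above those of Cont (0.31 ± 0.12, edgeR QL adjusted p = 0.120). For Id2 the eWAT siCEBPb genotype call ended without Cont replicates 1, 2 or 3 or aKO replicates 1 or 2 (edgeR QL adjusted p = 0.0564 to 0.0735) and with the DESeq2 Wald test (adjusted p = 0.0964). Id2 also passed the threshold in a fit without the shallow library, in the iWAT siCEBPb genotype comparison (-0.27, edgeR QL adjusted p = 0.0456).

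The knockdown lowered all 4 Id genes in aKO cells of both depots. The falls were -0.81 ± 0.12 in eWAT and -0.88 ± 0.14 in iWAT (edgeR QL adjusted p = 4.88e-06 and 1.94e-05) for Id1 and -1.11 ± 0.11 in eWAT and -1.02 ± 0.12 in iWAT (edgeR QL adjusted p = 4.47e-09 and 1.75e-07) for Id2. They were -0.65 ± 0.10 in eWAT and -0.77 ± 0.11 in iWAT (edgeR QL adjusted p = 7.59e-06 and 3.04e-06) for Id3 and -0.92 ± 0.11 in eWAT and -0.75 ± 0.12 in iWAT (edgeR QL adjusted p = 6.65e-08 and 1.50e-05) for Id4. In Cont cells edgeR QL called 0 of the 4 in either depot, with differences from -0.34 (Id1, iWAT) to 0.038 (Id3, iWAT). At an unadjusted p under 0.05 there were 0 in eWAT and 1 in iWAT, and DESeq2 called 0 and 0 and limma voom 1 and 1. The interaction tests this difference between the genotypes directly. It was -0.92 ± 0.15 in eWAT and -0.89 ± 0.17 in iWAT (edgeR QL adjusted p = 4.29e-04 and 0.00239) for Id2 and -0.65 ± 0.14 in eWAT and -0.80 ± 0.15 in iWAT (edgeR QL adjusted p = 0.00598 and 0.00209) for Id3. For Id4 it was -0.81 ± 0.15 in eWAT and -0.60 ± 0.17 in iWAT (edgeR QL adjusted p = 0.00144 and 0.0553), and for Id1 -0.60 ± 0.18 in eWAT and -0.54 ± 0.21 in iWAT (edgeR QL adjusted p = 0.0432 and 0.158), so with all libraries these passed in eWAT only. Id4 also passed the threshold in a fit without the shallow library, in the iWAT interaction comparison (-0.63, edgeR QL adjusted p = 0.0146). For Id1 the eWAT interaction call ended without Cont siNS replicates 2 or 3, Cont siCEBPb replicates 2 or 3, aKO siNS replicates 2 or 3 or aKO siCEBPb replicates 1 or 3 (edgeR QL adjusted p = 0.0620 to 0.165) and with the DESeq2 Wald test (adjusted p = 0.0839).

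**Figure D5:**
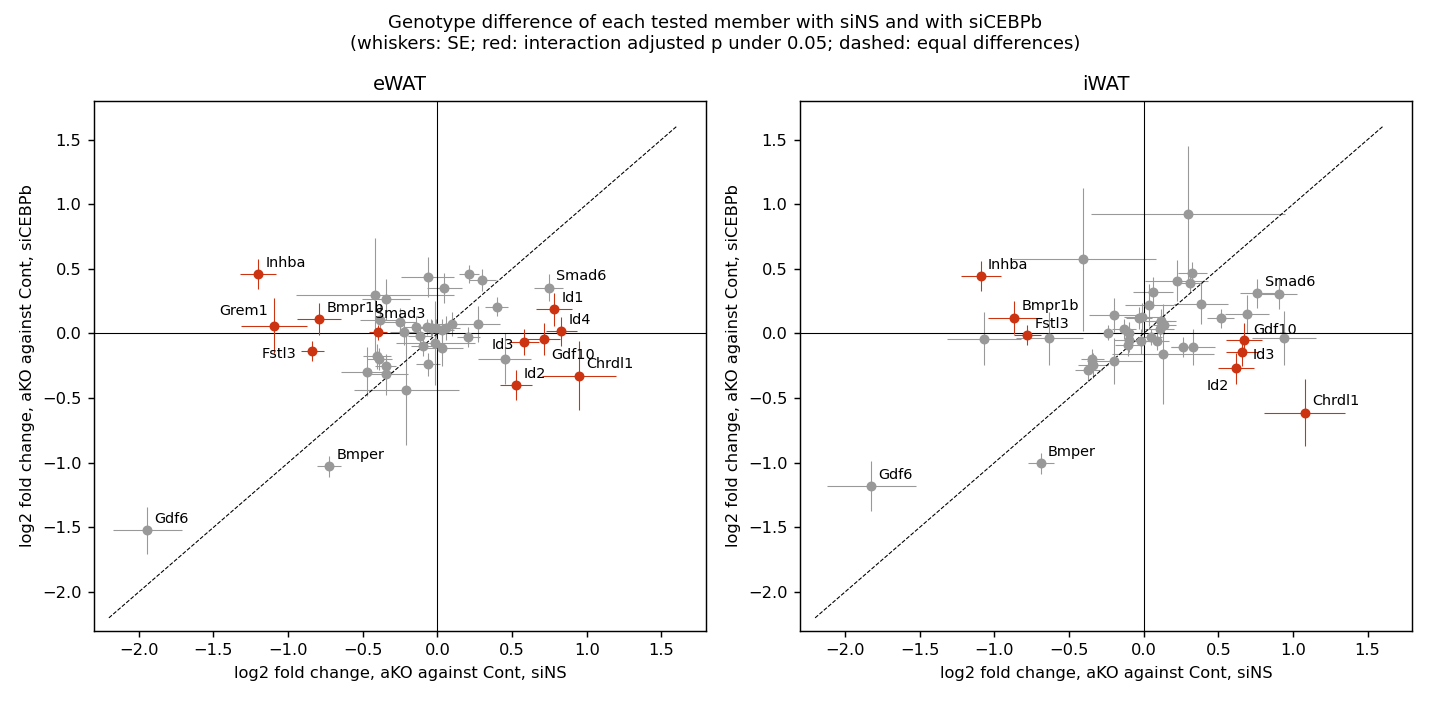
Log2 fold change of aKO against Cont with siCEBPb (vertical axis) against that with siNS (horizontal axis) for the 46 tested members, in eWAT (left) and iWAT (right). Whiskers are the approximate SE worked back from the F statistic. Red points have an interaction adjusted p under 0.05, and the dashed line marks equal differences. Inhba lies at -1.20 with siNS and 0.46 with siCEBPb in eWAT, and the red Id genes of eWAT lie between -0.40 (Id2) and 0.19 (Id1) with siCEBPb.

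Between depots 1 of 46 members differed in Cont siNS cells, beside 1.20% of all genes. This was Acvr1b, lower in iWAT with a log2 fold change of -0.40 ± 0.085 (edgeR QL adjusted p = 0.0154), at 46.3, 41.9 and 44.6 CPM against 58.5, 56.2 and 60.9 in eWAT. The share of all genes depended on the fit. Without the shallow library 582 of 14973 genes were higher in iWAT and 541 lower, beside 1 and 1 members. With limma voom these were 389 and 463 of 14785, beside 2 members. With only the compared groups in the fit they were 360 and 350 of 13803. For the difference of the genotype effects between depots, edgeR QL called 0 members, beside 0% of all genes. At an unadjusted p under 0.05 there were 0 members, and DESeq2 and limma voom also called 0. For Acvr1b the depot call ended without eWAT replicates 1 or 3 or iWAT replicates 2 or 3 (edgeR QL adjusted p = 0.0548 to 0.114).

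Other genes of the pathway were read from a separate list of 73, of which 55 were tested. In eWAT 12 rose and 10 fell in aKO siNS, beside 9.50% and 10.9% of all tested genes, and in iWAT 16 rose and 7 fell, beside 7.32% and 7.85%. Without the shallow library the eWAT counts were 13 and 13, beside 1901 and 1956 of 14973 genes. The iWAT counts were then 17 and 9, beside 1341 and 1411. Among the 17 tested transcriptional targets on this list, higher levels in aKO siNS outnumbered lower ones. The split was 5 against 2 for eWAT and 6 against 3 for iWAT, or 6 against 4 and 6 against 3 without the shallow library. The fall of Ccn2 given below thus does not stand for the targets as a group. Of the genes with the largest changes, Aspn, a matrix protein that binds TGF-beta, rose with a log2 fold change of 0.95 ± 0.17 in eWAT and 1.07 ± 0.19 in iWAT (edgeR QL adjusted p = 4.46e-04 and 4.28e-04). Nbl1, a secreted BMP inhibitor, rose with a log2 fold change of 0.72 ± 0.080 and 0.57 ± 0.085 (adjusted p = 1.53e-07 and 2.27e-05), and Pcsk6, a protease that matures BMP and nodal precursors, rose with a log2 fold change of 0.80 ± 0.085 and 0.74 ± 0.099 (adjusted p = 7.64e-08 and 5.57e-06). Eng, the co-receptor endoglin, fell with a log2 fold change of -0.77 ± 0.093 and -0.78 ± 0.10 (adjusted p = 6.81e-07 and 4.50e-06). Skil, a Smad co-repressor that TGF-beta induces, fell with a log2 fold change of -0.58 ± 0.077 and -0.51 ± 0.087 (adjusted p = 2.75e-06 and 1.32e-04). Ccn2, a matrix protein gene and TGF-beta target, fell with a log2 fold change of -0.64 ± 0.13 and -0.75 ± 0.14 (adjusted p = 8.40e-04 and 3.50e-04), and Ccn5 rose with a log2 fold change of 0.67 ± 0.10 and 0.56 ± 0.10 (adjusted p = 1.78e-05 and 3.01e-04). Bmp8a, a BMP ligand gene, rose with a log2 fold change of 0.57 ± 0.14 and 0.94 ± 0.17 (adjusted p = 0.00338 and 2.05e-04). Acvr1c, a type I receptor for activins and nodal that is not among the 52, rose in iWAT with a log2 fold change of 0.99 ± 0.30 (edgeR QL adjusted p = 0.0283), and its eWAT difference was 0.70 ± 0.26 (adjusted p = 0.0569). Fn1, on the target list, and Rgma, a co-receptor gene, were also among the largest changes in iWAT, and both were higher in aKO siNS. The Fn1 means in iWAT were 9725 (Cont) and 16108 (aKO) CPM, or 11309 in aKO without the shallow library. In eWAT they were 12106 and 13492. The Rgma means were 43.9 and 86.1 in iWAT, or 64.9 in aKO without the shallow library, and 47.8 and 68.0 in eWAT. For Acvr1c the iWAT siNS genotype call ended without Cont replicates 1 or 3 or aKO replicate 3 (edgeR QL adjusted p = 0.0781 to 0.247) and with only the compared groups in the fit (adjusted p = 0.0564). For Aspn the iWAT siNS genotype call ended with only the compared groups in the fit (adjusted p = 0.0992). For Nbl1 the iWAT siNS genotype call ended with only the compared groups in the fit (adjusted p = 0.0948). For Ccn5 the iWAT siNS genotype call ended with only the compared groups in the fit (adjusted p = 0.134). For Ccn2 the iWAT siNS genotype call ended with only the compared groups in the fit (adjusted p = 0.0501).

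Markers of cell types moved with the same comparisons. The summed CPM of 12 fat cell markers was 1875 to 2486 in eWAT Cont siNS and 2769 to 3129.6 in aKO siNS, and 2255 to 3069 and 3248 to 4046 in iWAT. It was lower with siCEBPb, at 1010 to 1421 (Cont) and 714 to 1356 (aKO) in eWAT, and 1287 to 1691 (Cont) and 833 to 1533 (aKO) in iWAT. Lpl weighed most in this sum, with a mean of 1003 CPM over all libraries and a range of 224 to 2982. Adipoq did not follow the sum in Cont. Its mean was 69.7 CPM with siNS and 89.6 with siCEBPb in eWAT Cont, and 82.9 and 89.4 in iWAT Cont. In aKO its means were 156 and 113 in eWAT and 132 and 113 in iWAT. In aKO 10 and 9 of the 12 fell with the knockdown, beside 19.1% and 17.7% of all tested genes. In Cont 4 and 4 fell, beside 14.9% and 14.0%. In aKO siNS 6 of 12 rose in eWAT and 2 in iWAT, beside 9.50% and 7.32%, and 0 and 0 fell. Without the shallow library 7 and 3 rose, beside 1901 and 1341 of 14973 genes. The 10 fibroblast and progenitor markers summed to 2395 to 2530.0 CPM in eWAT Cont siNS and 3063 to 3099.5 in aKO siNS, and to 2418 to 2474 (Cont) and 2334 to 2578 (aKO) with siCEBPb. Their iWAT sums were 2249 to 2348 (Cont) and 2644 to 2974 (aKO) with siNS, and 2258 to 2298 (Cont) and 2080.3 to 2396 (aKO) with siCEBPb. For the fat cell markers and for these markers the aKO siNS sums of both depots thus lay above those of Cont siNS. The Id genes did so in the deeper libraries. With siCEBPb the sums of the genotypes overlapped for both lists. Of the 10 fibroblast and progenitor markers 4 rose and 1 fell in eWAT aKO siNS, beside 9.50% and 10.9% of all tested genes. In iWAT 3 rose and 1 fell, beside 7.32% and 7.85%. With the knockdown in aKO 1 rose and 6 fell in eWAT, beside 16.6% and 19.1%, and 0 and 6 in iWAT, beside 13.6% and 17.7%. Without the shallow library the iWAT counts were 4 and 1 between genotypes, beside 1341 and 1411 of 14973 genes. With the knockdown they were 1 and 6, beside 2224 and 2975. The 9 endothelial markers summed to 39.3 to 42.4 in eWAT Cont siNS and 30.6 to 34.9 in aKO siNS, and to 36.4 to 37.7 and 29.9 to 51.4 in iWAT. The 9 leukocyte markers summed to 389 to 562 in eWAT Cont siNS and 131 to 149 with siCEBPb, and to 333 to 365 and 39.4 to 74.4 in aKO, while the T cell marker Cd3e had 0 counts in the 24 libraries. The iWAT sums were 399 to 566 and 134 to 146 in Cont, and 249 to 392 and 36.4 to 66.9 in aKO. The 9 smooth muscle and pericyte markers summed to 1517 to 1759 in eWAT Cont siNS and 3044 to 3095 with siCEBPb, and to 1321 to 1364 and 3349 to 4525 in aKO. All 8 cell cycle genes fell in aKO siNS of both depots, beside 10.9% and 7.85% of all tested genes, and in eWAT they summed to 504 to 561 in Cont and 312 to 337 in aKO. The 9 mesothelial markers, Wt1 among them, summed to 25.7 to 26.2 in eWAT Cont siNS and 6.09 to 7.84 in aKO siNS. Their iWAT sums were 28.1 to 28.8 (Cont) and 3.96 to 7.83 (aKO) with siNS. The part of these markers in the changes of the pathway genes was not tested.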

How the data were processed

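RNA-seq read counts per gene were deposited by the authors as 1 table of 24 libraries, and per the submitters' processing notes reads passed through CASAVA, cutadapt 2.7, TopHat2 2.1.1 on GRCm38, HTSeq and edgeR. Whether counting used strand is not stated in those notes, so members that overlap a gene on the opposite strand are uncertain. The table held 53465 gene entries, of which GENCODE M21 named 53360. The 5 lines of reads that the counter assigned to no gene, 27.5% to 39.5% of listed reads in 23 libraries and 95.9% in the shallow library, were left out of library sizes and tests. Files of single samples were not used here.

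The test used edgeR 4.0.16 under R 4.3.3. The filter filterByExpr, at a minimum count of 10, left 14785 genes, and TMM scaled the libraries, with factors of 0.985 to 1.04 in 23 libraries and 0.840 in the shallow one. All 24 libraries entered 1 quasi-likelihood (QL) fit of 8 group means without a block, and 12 comparisons were tested, each with Benjamini-Hochberg adjustment over all tested genes and a threshold of 0.05. The shallow library's low depth limits its precision for scarce genes.

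Results were recomputed with DESeq2 1.42.0 (its size factors, and its Wald test), limma 3.58.1 voom with sample weights, no filter, a filter of CPM over 1 in 12 libraries, only the compared groups in the fit, a replicate block, and leaving out each library. A fit without the shallow library was added after seeing the data. The fit was tested on simulated data with known changes. Replicate numbers are shared by the groups, and over the 8159 genes whose mean count reached 200 same-numbered eWAT and iWAT libraries of the same genotype and siRNA deviated together. For libraries that differed in genotype or siRNA the mean r was -0.065 and -0.032, over 11 pairs each. Single pairs ranged from -0.504 to 0.139 and from -0.241 to 0.123. With so few libraries per group, these values cannot settle whether the numbers pair the groups of the main comparisons.

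All 52 members could be named. Of other pathway genes, the 8 with the largest change per depot among those past the threshold were eligible, and of marker lists the 4 most expressed genes and defining genes near 0. The members and lists were chosen with earlier results of these data known. The knockdown result of 1 member, Ltbp3, enters the counts but is not reported here.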

Additional observations from a re-analysis of the deposited data

Results flagged for a closer look

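The effect of the C/EBPβ knockdown differed between aKO and Cont cells, by the interaction test, for 18 member results. Values are the log2 knockdown difference in aKO minus that in Cont, and a negative value means that the gene dropped more, or rose less, in aKO. In eWAT the interaction was 1.66 for Inhba, 1.16 for Grem1, 0.91 for Bmpr1b, 0.70 for Fstl3 and 0.40 for Smad3. It was -0.76 for Gdf10, -1.27 for Chrdl1, -0.60 for Id1, -0.92 for Id2, -0.65 for Id3 and -0.81 for Id4. In iWAT it was 1.53 for Inhba, 0.99 for Bmpr1b, 0.77 for Fstl3, -0.72 for Gdf10, -1.69 for Chrdl1, -0.89 for Id2 and -0.80 for Id3. The knockdown left less Cebpb RNA in aKO than in Cont cells of both depots, though the interaction for Cebpb itself did not pass the threshold. The part of the lower Cebpb level in these interactions was not tested.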

How the results depend on the processing

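Of 177 member results past the threshold, 133 stayed past it in the same direction under every alternative other than a left-out library, 125 with each library of the comparison left out, and 0 reversed under any setting run. With only the compared groups in the fit, 12 members changed in iWAT aKO with siNS, in place of 22. Over all 13481 genes tested there 320 rose and 398 fell. Between depots 5 changed, in place of 1, beside 360 higher and 350 lower of 13803 genes. With limma voom 13 differed between iWAT genotypes with siCEBPb, in place of 6, beside 1124 rises and 1444 falls over 14785 genes. There 13 had an iWAT interaction, in place of 7, beside 483 positive and 752 negative calls. Between depots 2 differed with limma voom, beside 389 higher and 463 lower genes. Between depots 3 differed without the filter on low counts, beside 235 higher and 307 lower of 30184 genes. Without the shallow library 2 differed, beside 582 and 541 of 14973. The changed members also varied with 1 library of the compared groups left out. Between genotypes with siNS they numbered 18 to 21 (eWAT) and 15 to 23 (iWAT). Over all genes the rises then ranged from 969 to 1271 and from 669 to 1341. The falls ranged from 1118 to 1391 and from 767 to 1411. With siCEBPb the changed members numbered 4 to 8 and 4 to 6. For the knockdown they numbered 14 to 19 and 13 to 16 in Cont, and 24 to 31 and 24 to 30 in aKO. For the interaction they were 8 to 10 and 6 to 12, between depots 0 to 1, and for the difference of genotype effects between depots 0 to 0. A fit without the shallow library enters a range only where its group was compared. Its counts for the other comparisons, given above, can lie outside the ranges. The iWAT interaction count of 12 arose without the shallow library, and the cause of these changes was not tested. With a replicate block the counts in the order eWAT and iWAT were 22 and 22 between genotypes with siNS, 11 and 8 with siCEBPb, 19 and 19 for the knockdown in Cont, 31 and 30 in aKO, 11 and 9 for the interaction, 1 between depots and 0 for the genotype effects between depots. The block ended 2 calls, Tgfbr3 in eWAT aKO siNS and Smad3 with the knockdown in iWAT Cont, and no other. Depth limits the scarce members, with 1 count of Gdf6 and 2 of Chrdl1 in the shallow library. Well-counted members also stood apart there, with Ltbp2 at 852 CPM on 431 counts, beside 478 and 449.5 CPM in replicates 1 and 3.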
